A study of Homo sapiens with 14 samples.

Results

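The RNA programme lost and gained at the entry of definitive endoderm into the early pancreatic progenitor stage was read from 4 of the 14 libraries of the series, 2 of early pancreatic progenitors (PP1) and 2 of definitive endoderm (DE). Every gene with enough counts for a test was taken, which left 24603 of the 59050 gene symbols in the table. All cells were wild-type HUES8, an established human embryonic stem cell line, differentiated in culture. The PP1 group is labelled as early pancreatic progenitor and the DE group as definitive endoderm, and a further stage, late pancreatic progenitors (PP2, 3 libraries), shared the estimate of the spread and gave no test here. The RNA was total RNA depleted of ribosomal RNA. A matched set of libraries held ribosome-bound RNA (Ribo). The agents that drove the differentiation, the day of each stage and the culture from which each library came are not given in the sources used here, and 1 line stands for the stage.

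Definitive endoderm is the embryonic sheet that forms the gut tube and, from it, liver, pancreas, stomach, intestine, lung and thyroid. It arises in the primitive streak under Nodal (in culture, activin) and WNT signalling, which act through SMAD proteins and beta-catenin. The sheet is then patterned by FGF, BMP, Hedgehog, WNT and retinoic acid, and the factors HNF4, FOXA, GATA and ONECUT switch on genes of the posterior foregut, from which the ventral pancreas and the liver bud side by side.

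The 4 libraries held 15107847 to 20906646 counts, of which mitochondrially encoded protein genes took 3.99% and 2.47% in PP1, against 3.16% and 3.82% in DE. P-values come from the edgeR quasi-likelihood test with Benjamini-Hochberg adjustment over all tested genes, and an adjusted p under 0.05 counts as a rise or a fall. The replicates are not stated to be separate differentiations, so the spread behind these p-values is that between libraries and may be technical. PP2 replicate 3 stood apart from its group, so counts without it are given beside the counts of each list. The phrase "every leave-out run" means that the call was kept, in the same direction, in all 7 fits that each left out 1 RNA library. Levels are CPM, counts scaled to the TMM-adjusted size of each library and given in replicate order. Changes are log2 of PP1 over DE, with the fitted standard error after ±. A gene with no count in a stage has a bound computed at 3 counts over that stage, and a gene with 1 to 3 counts has the ratio of its CPM rates, with an exact 95% interval for the counts. Both cover counting error only. Unless a sentence says otherwise, each gene named below as having risen or fallen did so in every leave-out run. There were 356 such genes, with an edgeR adjusted p of at most 0.00451, and for each of them both PP1 libraries lay on the same side of both DE libraries. The kept call and the lack of overlap were both part of the rule that chose most of these genes, so neither is a result about them. In bulk RNA, fewer cells of a type and less RNA per cell cannot be told apart.

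The stage labels were checked against defining markers. SOX17 and CXCR4, markers of definitive endoderm, were at 13.2 and 9.41 CPM in PP1 and 454 and 486 CPM in DE for SOX17, and at 2.81 and 2.5 CPM in PP1 and 145 and 159.6 CPM in DE for CXCR4. PDX1, which defines the pancreatic field, was at 64.02 and 58.2 CPM in PP1 and 0 and 0 CPM in DE. SOX9, a progenitor factor, was at 129 and 154 CPM in PP1 and 1.07 and 1.73 CPM in DE. NKX6-1, which marks later pancreatic progenitors, was close to 0 with 0.48 and 0.416 CPM in PP1 and 0 and 0 CPM in DE. PTF1A, another factor of pancreatic progenitors, was also close to 0 with 0 and 0.312 CPM in PP1 and 0.0593 and 0 CPM in DE. The hormone genes INS and GCG had 0 counts in each of the 4 libraries.

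In all, 3034 genes rose (12.3% of those tested) and 2945 fell (12.0%), and 1342 (5.45%) and 1160 (4.71%) did so in every leave-out run (2502 in all, 10.2%). Among the 15000 protein-coding genes the shares were 14.3% and 13.1%, or 7.01% and 5.59% in every leave-out run, and the counts were 4529 (30.2%) and 4321 (28.8%) without PP2 replicate 3. Without PP2 replicate 3, 6075 genes rose (24.7%) and 5940 fell (24.1%). The median log2 change of all tested genes was 0.01. The shares of a gene list are to be read against these values, and the lists are described by counts and medians alone. List medians set genes with 0 to 3 counts in a stage at their bound or count ratio.

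**Figure D1:**
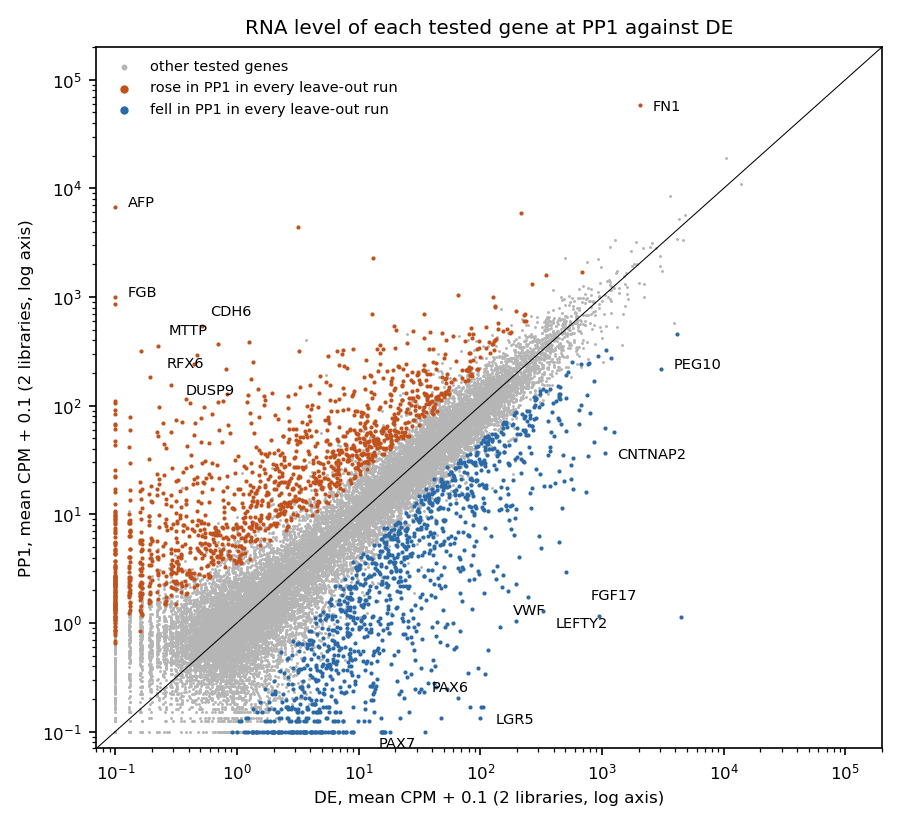
Mean level of each of the 24603 tested genes in PP1 (vertical axis) against DE (horizontal axis), as CPM plus 0.1 on log axes, with 2 libraries per stage. Orange points are the 1342 genes that rose and blue points the 1160 that fell in every leave-out run, and genes at 0 CPM in a stage lie on the line at 0.1. FN1, a matrix glycoprotein, had the highest PP1 level among the genes named in the plot, and AFP and FGB lie on the left edge.

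Transcription factor genes moved in both directions. Of the 427 tested members of the transcription factor families other than the zinc finger ZNF genes, 92 rose and 111 fell (54 and 62 in every leave-out run, 147 and 161 without PP2 replicate 3), with a median log2 change of -0.12. Several families that pattern the neural plate and the anterior mesendoderm held more losses than gains. Of the PAX, EYA, DACH and sine oculis homeobox genes, 2 of the 16 tested members rose and 8 fell (1 and 8 in every leave-out run, 2 and 9 without PP2 replicate 3), with a median log2 change of -1.79. PAX6, a master regulator of eye, brain and islet development, had 0.137 and 0 CPM in PP1, against 99.2 and 105 CPM in DE (1723-fold lower, exact 95% counting interval 477 to 14232, edgeR adjusted p = 1.9e-05). PAX7, a neural crest and muscle stem cell factor, had 0 and 0 CPM in PP1, against 32.8 and 36.7 CPM in DE (at least 391-fold lower). SIX3, a forebrain and eye regulator, had 0 and 0.26 CPM in PP1, against 29.9 and 32.2 CPM in DE (log2 change -7.67 ± 0.90). These 3 genes were close to absent from PP1 and clear in each DE library. EYA2 and SIX4, a phosphatase coactivator and one of its DNA-binding partners, also fell, at log2 changes from -2.12 (SIX4) to -7.16 (EYA2). DACH1 went the other way, with 29.9 and 25.9 CPM in PP1, against 6.59 and 6.71 CPM in DE (log2 change 2.07 ± 0.24).

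The ZIC and GLI zinc fingers, which act in the neural plate and in Hedgehog signalling, also lost more than they gained: 1 of the 12 tested members rose and 7 fell (1 and 4 in every leave-out run, 4 and 8 without PP2 replicate 3), with a median log2 change of -0.93. ZIC2, a forebrain patterning gene, had 7.54 and 4.89 CPM in PP1, against 297 and 309 CPM in DE (log2 change -5.61 ± 0.25). ZIC5 and GLI2 fell as well, at log2 changes from -4.09 (GLI2) to -4.63 (ZIC5). The member that rose was GLIS3, a Krüppel-like factor needed for pancreas development and known as a neonatal diabetes gene, with 87.1 and 96.9 CPM in PP1, against 7.95 and 6.78 CPM in DE (log2 change 3.64 ± 0.20). Of LIM homeodomain genes, 1 of the 6 tested members rose and 4 fell (0 and 4 in every leave-out run, 1 and 4 without PP2 replicate 3), with a median log2 change of -3.21. LHX1, a head organizer factor, fell to 3.08 and 2.7 CPM in PP1, against 84.04 and 109 CPM in DE, and LMX1B and ISL1 fell at log2 changes from -3.06 (ISL1) to -3.36 (LMX1B). OTX2, an anterior head and endoderm factor, had 44.3 and 39.1 CPM in PP1, against 368 and 384 CPM in DE (log2 change -3.17 ± 0.25). VENTX and TLX1, further homeobox genes, fell at log2 changes from -2.91 (TLX1) to -5.71 (VENTX).

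Among SOX genes, 3 of the 17 tested members rose and 8 fell (2 and 4 in every leave-out run, 4 and 11 without PP2 replicate 3), with a median log2 change of -0.85. SOX18, a regulator of endothelial and lymphatic fate, had 0 and 0 CPM in PP1, against 16.6 and 14.7 CPM in DE (at least 177-fold lower). SOX10, a neural crest factor, had 1.17 and 1.46 CPM in PP1, against 18.9 and 22 CPM in DE (log2 change -3.95 ± 0.61). SOX21 fell at -2.13 ± 0.33 log2, while SOX4, which is needed for islet development in the mouse, had 676 and 718 CPM in PP1, against 242 and 225 CPM in DE (log2 change 1.58 ± 0.19). Changes in both directions also held for forkhead genes, of which 8 of the 34 tested members rose and 6 fell (3 and 3 in every leave-out run, 13 and 12 without PP2 replicate 3), with a median log2 change of 0.08. FOXH1, the partner through which SMAD2 reaches Nodal targets, had 16.8 and 12.6 CPM in PP1, against 75.9 and 99.3 CPM in DE (log2 change -2.58 ± 0.35). FOXC1, a factor of paraxial mesoderm and vessels, had 1.1 and 1.4 CPM in PP1, against 83.98 and 87.1 CPM in DE (log2 change -6.08 ± 0.23). FOXA1, a pioneer factor of endoderm, was higher, with 377 and 376 CPM in PP1, against 23.7 and 26.2 CPM in DE (log2 change 3.91 ± 0.34). Its paralog FOXA2 did not pass the test (143 and 144 CPM in PP1 and 238 and 254 CPM in DE, edgeR adjusted p = 0.118). FOXP1 and the motile cilium regulator FOXJ1 rose at log2 changes from 2.08 (FOXP1) to 2.83 (FOXJ1).

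Several SP and KLF genes, which bind GC-rich promoters, also split, and 6 of the 22 tested members rose and 5 fell (2 and 4 in every leave-out run, 9 and 6 without PP2 replicate 3), with a median log2 change of 0.14. SP5, a direct WNT target, had 0.274 and 1.35 CPM in PP1, against 36.8 and 42.5 CPM in DE (log2 change -5.53 ± 0.54). KLF8 had 44.1 and 31.7 CPM in PP1, against 394 and 356 CPM in DE (log2 change -3.31 ± 0.22), and KLF7 and KLF11 fell at log2 changes from -2.17 (KLF7) to -3.01 (KLF11). KLF5, an epithelial factor of the gut, had 339 and 320.1 CPM in PP1, against 43.98 and 37.7 CPM in DE (log2 change 3.01 ± 0.20), and KLF3 rose at 2.28 ± 0.17 log2. SALL and ZSCAN genes mostly fell or did not pass: 2 of the 22 tested members rose and 6 fell (1 and 5 in every leave-out run, 5 and 10 without PP2 replicate 3), with a median log2 change of -0.31. SALL1 had 25.8 and 24.2 CPM in PP1, against 423 and 460.0 CPM in DE (log2 change -4.14 ± 0.41), and SALL4, a stem cell factor, was lower but still high, with 236 and 259.6 CPM in PP1, against 779 and 788 CPM in DE (log2 change -1.66 ± 0.22). SALL3 and ZSCAN10, the second a pluripotency factor, fell at log2 changes from -2.76 (ZSCAN10) to -3.75 (SALL3). PRDM14, a repressor that guards naive pluripotency and germ cells, had 0.0685 and 0 CPM in PP1, against 14.1 and 16.3 CPM in DE (512-fold lower, exact 95% counting interval 91.5 to 20273).

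HOX genes, whose order along the chromosome follows the body axis, changed at the anterior end of the HOXA cluster and at the posterior end of the HOXD cluster. HOXA2 and HOXA3, anterior members that respond to retinoic acid, rose. HOXA3 had 23.1 and 27.6 CPM in PP1, against 0 and 0 CPM in DE (at least 273-fold higher). HOXA2 had 7.95 and 8.63 CPM in PP1, against 0 and 0 CPM in DE (at least 88.6-fold higher). Neither gene had a count in DE. HOXD13, the most posterior member of its cluster, had 0.411 and 0.728 CPM in PP1, against 46.3 and 47.2 CPM in DE (log2 change -6.31 ± 0.44). In the whole family, 5 of the 24 tested members rose and 7 fell (3 and 1 in every leave-out run, 9 and 8 without PP2 replicate 3), with a median log2 change of 0.11. HOXB2 and HOXB3 did not pass. HOXB2 had 15.8 and 16.8 CPM in PP1 and 6.17 and 5.52 CPM in DE (edgeR adjusted p = 0.0577). HOXB3 had 48.2 and 48.6 CPM in PP1 and 32.9 and 37.1 CPM in DE (edgeR adjusted p = 0.402). MEIS cofactors, which bind DNA with HOX proteins, also changed. MEIS2 had 109 and 112 CPM in PP1, against 6.17 and 6.38 CPM in DE (log2 change 4.13 ± 0.20). MEIS1 had 98.6 and 92.7 CPM in PP1, against 20.9 and 21.3 CPM in DE (log2 change 2.18 ± 0.22), while MEIS3, IRX2 and IRX3 fell at log2 changes from -1.63 (MEIS3) to -4.88 (IRX3).

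Nuclear receptors, the ligand-binding regulators of hormone and metabolite responses, rose more often than they fell: 15 of the 42 tested members rose and 7 fell (10 and 2 in every leave-out run, 22 and 12 without PP2 replicate 3), with a median log2 change of 0.66. NR5A2, which drives genes of bile acid and exocrine pancreas function, had 110.2 and 119.7 CPM in PP1, against 7.77 and 5.71 CPM in DE (log2 change 4.09 ± 0.25, edgeR adjusted p = 4.6e-05). THRB, a thyroid hormone receptor, had 46.7 and 43.9 CPM in PP1, against 0.772 and 0.199 CPM in DE (log2 change 6.49 ± 0.45). NR2F2, also called COUP-TFII, had 81.4 and 60.2 CPM in PP1, against 3.98 and 2.66 CPM in DE (log2 change 4.41 ± 0.45). HNF4G, the paralog of HNF4A, had 18.6 and 21.4 CPM in PP1, against 0.772 and 1.4 CPM in DE (log2 change 4.21 ± 0.41). Each of these receptors was below 10 CPM in DE. HNF4A itself was higher but lost its call in some leave-out runs, with 163 and 153 CPM in PP1 and 37.2 and 28.9 CPM in DE (log2 change 2.25 ± 0.61, edgeR adjusted p = 0.035). RARB, a retinoic acid receptor and itself a retinoic acid target, had 33.7 and 33.1 CPM in PP1, against 13.7 and 11.9 CPM in DE (log2 change 1.38 ± 0.23). The mineralocorticoid receptor NR3C2 rose at 2.37 ± 0.28 log2. NR0B1 (DAX1) and the retinoid X receptor RXRG fell. RXRG had 0.48 and 0.156 CPM in PP1, against 20.001 and 16.9 CPM in DE (log2 change -5.90 ± 0.63). NR0B1 had 0.411 and 0 CPM in PP1, against 14.5 and 13.8 CPM in DE (log2 change -6.22 ± 1.04).

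The basic leucine zipper genes of the CEBP and PAR group mostly rose: 9 of the 16 tested members rose and 1 fell (8 and 0 in every leave-out run, 10 and 1 without PP2 replicate 3), with a median log2 change of 1.54. CEBPA, a regulator of hepatocyte and adipocyte metabolism, had 28.03 and 27.3 CPM in PP1, against 2.55 and 2.26 CPM in DE (log2 change 3.52 ± 0.38). CEBPB, an acute phase regulator, had 84.6 and 75.7 CPM in PP1, against 10.5 and 12.6 CPM in DE (log2 change 2.79 ± 0.38). CREB3L2, a membrane-bound factor of the secretory pathway, had 427 and 364 CPM in PP1, against 97.2 and 99.5 CPM in DE (log2 change 2.01 ± 0.31). CEBPD, NFIL3 and TEF rose at log2 changes from 1.15 (TEF) to 2.34 (CEBPD). Of AP-1 and ATF genes, 7 of the 22 tested members rose and 3 fell (3 and 1 in every leave-out run, 11 and 5 without PP2 replicate 3), with a median log2 change of 0.23. FOSL2, an AP-1 subunit, had 219 and 221 CPM in PP1, against 8.31 and 7.64 CPM in DE (log2 change 4.78 ± 0.21). MAF had 75.1 and 62.5 CPM in PP1, against 12.8 and 14.02 CPM in DE (log2 change 2.36 ± 0.18). ATF5, a stress-induced factor, rose at 2.46 ± 0.32 log2.

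RFX6, a winged-helix factor that acts in gut endoderm and islets, had 194 and 176 CPM in PP1, against 0.119 and 0.0665 CPM in DE (1952-fold higher, exact 95% counting interval 668 to 9469). ISX, an intestinal homeobox gene that controls vitamin A uptake, had 86.02 and 97.99 CPM in PP1, against 0 and 0 CPM in DE (at least 987-fold higher). Of ETS genes, 6 of the 23 tested members rose and 5 fell (4 and 2 in every leave-out run, 9 and 8 without PP2 replicate 3), with a median log2 change of -0.12. EHF, ELF3 and ELF4 rose. EHF, an epithelial member, had 10.3 and 12.4 CPM in PP1, against 0 and 0.133 CPM in DE (183-fold higher, exact 95% counting interval 50.3 to 1516). ELF3 had 53.7 and 60.2 CPM in PP1, against 10.9 and 13.9 CPM in DE (log2 change 2.20 ± 0.21). ELF4 had 43.5 and 49.6 CPM in PP1, against 2.37 and 2.66 CPM in DE (log2 change 4.21 ± 0.29). SPDEF, another epithelial member, was higher, with 6.31 and 5.25 CPM in PP1 and 0.712 and 1.46 CPM in DE (edgeR adjusted p = 0.00628), but its call was lost in a leave-out run, and ELF5 did not pass (edgeR adjusted p = 0.0792). ETS1 and ETS2 fell at log2 changes from -2.57 (ETS2) to -2.77 (ETS1). The epithelial grainyhead genes GRHL1 and GRHL2 rose at log2 changes from 1.53 (GRHL2) to 2.36 (GRHL1). Of ID and proneural basic helix-loop-helix genes, 3 of the 15 tested members rose and 1 fell (3 and 0 in every leave-out run, 4 and 2 without PP2 replicate 3), with a median log2 change of 0. ID2 and ID4, inhibitors of basic helix-loop-helix factors and targets of BMP signalling, rose, while their tested relatives ID1 and ID3 did not meet the rule for naming. ID2 had 171 and 203 CPM in PP1, against 12.1 and 12.96 CPM in DE (log2 change 3.90 ± 0.34). ID4 had 29.4 and 24.3 CPM in PP1, against 6.29 and 5.71 CPM in DE (log2 change 2.16 ± 0.35).

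**Figure D2:**
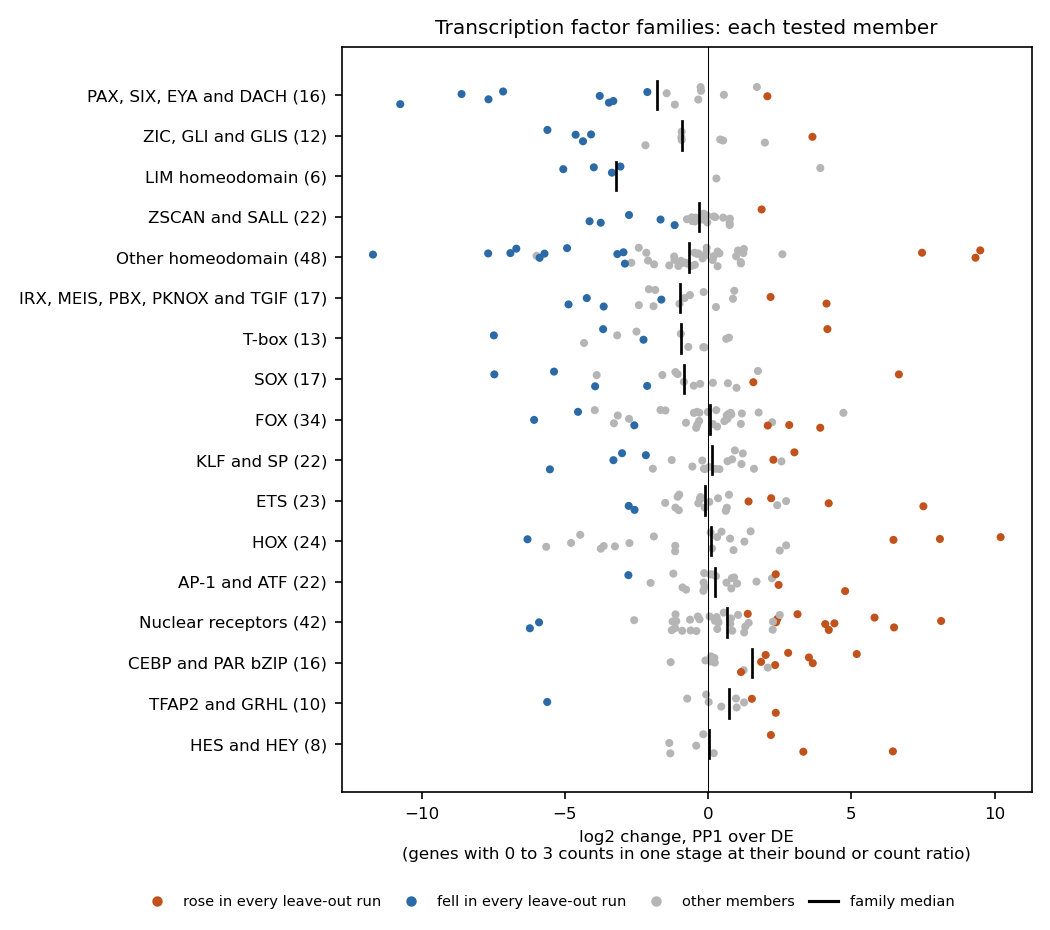
Log2 change (PP1 over DE, horizontal axis) of each tested member of 17 transcription factor families, with the number of tested members beside each name. Orange and blue points rose and fell in every leave-out run, grey points are the other members and the black bar is the family median, which is -3.21 for LIM homeodomain, -1.79 for the family of PAX, EYA, DACH and sine oculis genes and 1.54 for CEBP and PAR bZIP genes. Genes with 0 to 3 counts in a stage are drawn at their bound or count ratio.

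The FGF pathway lost some of its ligands, and its receptors and feedback genes changed in both directions. Of FGF ligand genes, 1 of the 15 tested members rose and 5 fell (1 and 3 in every leave-out run, 1 and 5 without PP2 replicate 3), with a median log2 change of -0.99. FGF17 had 0.96 and 1.14 CPM in PP1, against 891 and 994 CPM in DE (log2 change -9.79 ± 0.26, edgeR adjusted p = 6.3e-06). Its close relative FGF8, a ligand of gastrulation and of midbrain patterning, had 0.274 and 0.78 CPM in PP1, against 47.3 and 59.7 CPM in DE (log2 change -6.59 ± 0.43). Each of these ligands was high in the DE libraries and near 1 CPM or lower in the PP1 libraries. FGF12, an intracellular member of the family, fell at -1.90 ± 0.19 log2. Among receptors and feedback genes, 10 of the 37 tested members rose and 5 fell (8 and 3 in every leave-out run, 17 and 7 without PP2 replicate 3), with a median log2 change of 0.27. FGFR4, the liver and gut receptor of the FGF19 hormone, had 210.4 and 228 CPM in PP1, against 42.02 and 44.99 CPM in DE (log2 change 2.33 ± 0.38). KLB, the coreceptor beta-klotho, had 14.7 and 15.6 CPM in PP1, against 2.85 and 2.26 CPM in DE (log2 change 2.56 ± 0.35). FGFR1 and FGFR2 did not pass. FGFR1 had 671 and 537 CPM in PP1 and 358 and 384 CPM in DE (edgeR adjusted p = 0.0801). FGFR2 had 169 and 191 CPM in PP1 and 190.2 and 208 CPM in DE (edgeR adjusted p = 0.642). DUSP9, a phosphatase that switches off ERK, had 149 and 163 CPM in PP1, against 0.178 and 0.199 CPM in DE (log2 change 9.64 ± 0.40). The membrane proteins FLRT3 and FLRT2, which bind FGF receptors and UNC5 receptors, rose. FLRT3 had 674 and 706 CPM in PP1, against 35.3 and 33.9 CPM in DE (log2 change 4.32 ± 0.49). FLRT2 had 466 and 442 CPM in PP1, against 82.7 and 78.7 CPM in DE (log2 change 2.49 ± 0.19). DUSP4, IL17RD and SPRED1, other brakes on the ERK cascade, fell at log2 changes from -1.29 (SPRED1) to -1.82 (DUSP4). SPRY1 rose at 1.98 ± 0.24 log2, while ETV4, ETV5, DUSP6 and SPRY2, usual readouts of ERK activity, did not pass (edgeR adjusted p = 0.729, 0.249, 0.437 and 0.226).

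Among ligands of the TGF-beta family, which includes Nodal, activins and BMPs, 9 of the 26 tested members rose and 7 fell (7 and 7 in every leave-out run, 9 and 11 without PP2 replicate 3), with a median log2 change of -0.20. NODAL, the ligand that maintains mesendoderm, had 0.548 and 1.09 CPM in PP1, against 44.1 and 58.5 CPM in DE (log2 change -5.92 ± 0.35). Its feedback inhibitors LEFTY1 and LEFTY2, near-identical copies whose reads may be split, fell. LEFTY1 had 0.274 and 0.208 CPM in PP1, against 98.2 and 122 CPM in DE (log2 change -8.82 ± 0.77). LEFTY2 had 1.03 and 1.35 CPM in PP1, against 325 and 329.5 CPM in DE (log2 change -8.08 ± 0.42). TDGF1 (Cripto), the coreceptor of Nodal, had 15.7 and 16.2 CPM in PP1, against 752 and 729 CPM in DE (log2 change -5.54 ± 0.38). Ligand, inhibitors and coreceptor were each lower in both PP1 libraries than in both DE libraries. BMP2, BMP4 and BMP7 fell at log2 changes from -1.38 (BMP7) to -1.93 (BMP2). FST, follistatin, which binds and blocks activins, had 33.4 and 35.9 CPM in PP1, against 359 and 361 CPM in DE (log2 change -3.38 ± 0.36).

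TGFB2 and GDF15 were among the ligands that rose. TGFB2 had 81.7 and 76.9 CPM in PP1, against 1.25 and 1.59 CPM in DE (log2 change 5.80 ± 0.22). GDF15, a stress hormone, had 114 and 116 CPM in PP1, against 0.297 and 0.266 CPM in DE (log2 change 8.63 ± 0.48). BMP5 and the procollagen protease BMP1 rose at log2 changes from 1.71 (BMP5) to 1.96 (BMP1). Among receptors, AMHR2, the receptor of anti-Müllerian hormone, had 60.7 and 61.03 CPM in PP1, against 8.25 and 8.64 CPM in DE (log2 change 2.85 ± 0.20) and BMPR1B rose at 1.79 ± 0.26 log2, while the BMP coreceptor RGMA fell at -3.31 ± 0.46 log2. BAMBI, a decoy receptor, had 257 and 248.9 CPM in PP1, against 36.9 and 44.5 CPM in DE (log2 change 2.63 ± 0.29). PMEPA1 and SMAD6, feedback inhibitors of TGF-beta and BMP signalling, fell at log2 changes from -1.18 (SMAD6) to -3.44 (PMEPA1). In the list of antagonists and targets, 7 of the 22 tested members rose and 7 fell (4 and 4 in every leave-out run, 10 and 11 without PP2 replicate 3), with a median log2 change of -0.38.

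WNT inhibitors and targets fell more often than they rose. Of secreted inhibitors and targets of the pathway, 2 of the 24 tested members rose and 14 fell (2 and 9 in every leave-out run, 3 and 15 without PP2 replicate 3), with a median log2 change of -2.09. LGR5, a receptor of R-spondins and a WNT target, had 0.137 and 0 CPM in PP1, against 104 and 107 CPM in DE (1781-fold lower, exact 95% counting interval 493 to 14713, edgeR adjusted p = 1.9e-05). NKD1, a feedback inhibitor, had 2.47 and 2.34 CPM in PP1, against 35.6 and 42 CPM in DE (log2 change -4.01 ± 0.33). The secreted antagonists SFRP1 and SFRP5 moved in opposite directions. SFRP1 had 56.6 and 56.5 CPM in PP1, against 1248 and 1275 CPM in DE (log2 change -4.48 ± 0.22). SFRP5, a marker of foregut endoderm in the mouse, had 32.1 and 35.9 CPM in PP1, against 1.19 and 2.13 CPM in DE (log2 change 4.36 ± 0.27). RSPO3, an R-spondin, had 13.8 and 7.28 CPM in PP1, against 0.475 and 0.266 CPM in DE (log2 change 4.78 ± 0.57). Of ligands, WNT3, the ligand of the primitive streak, fell at -1.87 ± 0.20 log2 and WNT11 rose, with 18.7 and 20.4 CPM in PP1, against 2.26 and 1.59 CPM in DE (log2 change 3.33 ± 0.29). FZD4 rose and the receptor kinase ROR2 fell, at 1.40 ± 0.23 and -1.51 ± 0.24 log2. FZD5 was lower at 932 and 1076 CPM in PP1, against 2178 and 2241 CPM in DE, a call lost in some leave-out runs (log2 change -1.14 ± 0.23, edgeR adjusted p = 0.00964).

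A Hedgehog ligand and a Notch ligand rose. IHH, the ligand of gut epithelium, had 138 and 115 CPM in PP1, against 1.01 and 1.26 CPM in DE (log2 change 6.79 ± 0.60). SHH, which is kept out of early pancreatic epithelium in the embryo, was low and higher in PP1, with 20.4 and 18.2 CPM in PP1 and 8.25 and 6.05 CPM in DE (log2 change 1.43 ± 0.28, edgeR adjusted p = 0.00718, not kept in every leave-out run). GAS1, a coreceptor, fell at -4.13 ± 0.33 log2, and the receptor and target PTCH1 did not pass (edgeR adjusted p = 0.198). In the list as a whole, 2 of the 17 tested members rose and 2 fell (1 and 2 in every leave-out run, 7 and 6 without PP2 replicate 3), with a median log2 change of 0.28. Of Notch genes, 7 of the 21 tested members rose and 4 fell (5 and 0 in every leave-out run, 8 and 5 without PP2 replicate 3), with a median log2 change of 0.20. JAG1, a Notch ligand, had 300.1 and 382 CPM in PP1, against 18.2 and 21.7 CPM in DE (log2 change 4.10 ± 0.24). The target NRARP had 52.7 and 42.2 CPM in PP1, against 14.5 and 14.4 CPM in DE (log2 change 1.71 ± 0.25). NOTCH1 was lower, with 12.3 and 22.1 CPM in PP1 and 112 and 137 CPM in DE, but the call was lost in some leave-out runs (edgeR adjusted p = 0.0224).

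Receptor tyrosine kinases changed in both directions: 8 of the 31 tested members rose and 8 fell (5 and 4 in every leave-out run, 10 and 14 without PP2 replicate 3), with a median log2 change of -0.23. MET, the receptor of hepatocyte growth factor, had 58.2 and 61.8 CPM in PP1, against 0.831 and 0.399 CPM in DE (log2 change 6.57 ± 0.44). EGFR had 197 and 230.5 CPM in PP1, against 17.5 and 20.5 CPM in DE (log2 change 3.49 ± 0.29). Its relative ERBB4 had 16.7 and 17.3 CPM in PP1, against 632 and 530.2 CPM in DE (log2 change -5.10 ± 0.21). MET and EGFR libraries were higher in PP1 and ERBB4 libraries higher in DE, with no overlap, which the rule for naming them required. NTRK2 and CSF1R, known from neurons and macrophages, rose at log2 changes from 3.55 (CSF1R) to 5.40 (NTRK2). KIT, KDR and RET fell at log2 changes from -1.90 (KIT) to -4.65 (RET). KDR, the main VEGF receptor, and VWF, a protein of endothelial cells, both fell. VWF had 0.685 and 0.936 CPM in PP1, against 133 and 159.9 CPM in DE (log2 change -7.47 ± 0.29). Of ligands, KITLG and NRG1 rose. KITLG had 25.8 and 28.2 CPM in PP1, against 4.39 and 1.73 CPM in DE (log2 change 3.13 ± 0.49). NRG1 had 48.9 and 48.9 CPM in PP1, against 9.97 and 8.84 CPM in DE (log2 change 2.38 ± 0.36), and ANGPT2 and EGF fell at log2 changes from -3.23 (EGF) to -3.93 (ANGPT2). NRG1 is a ligand of ERBB4 and KITLG the ligand of KIT. For these pairs the ligand was higher and the receptor lower in PP1.

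IGF binding proteins, which hold insulin-like growth factors in the extracellular space, and the related genes of their family gave a split count. Of the family, 4 of the 13 tested members rose and 3 fell (4 and 3 in every leave-out run, 7 and 4 without PP2 replicate 3), with a median log2 change of 0.68. IGFBP3 had 654 and 731 CPM in PP1, against 11.99 and 13.4 CPM in DE (log2 change 5.77 ± 0.23, edgeR adjusted p = 1.5e-05). IGFBP6 had 83.8 and 68.04 CPM in PP1, against 2.31 and 1.79 CPM in DE (log2 change 5.20 ± 0.22). IGFBP5 had 24.2 and 17.8 CPM in PP1, against 557 and 555 CPM in DE (log2 change -4.73 ± 0.26). STC1, a stanniocalcin that inhibits the protease cutting IGF binding proteins, had 6.24 and 4.73 CPM in PP1, against 509 and 382 CPM in DE (log2 change -6.35 ± 0.29). IGFBPL1 fell at -4.42 ± 0.25 log2. IGF2 was high in PP1, with 465 and 332 CPM in PP1 and 3.5 and 3.72 CPM in DE, but its call was lost in some leave-out runs (edgeR adjusted p = 0.0271). Cytokine receptors also changed. IL6R, the binding subunit for interleukin 6, had 115 and 102 CPM in PP1, against 1.42 and 0.797 CPM in DE (log2 change 6.58 ± 0.36), and IL1RAP rose at 4.02 ± 0.28 log2. The chemokine receptors CXCR4 and ACKR3, which share the ligand CXCL12, fell, ACKR3 with 1.17 and 2.44 CPM in PP1, against 64.9 and 71.5 CPM in DE (log2 change -5.21 ± 0.30). CCL2 had 0.137 and 0.468 CPM in PP1, against 40.4 and 43.99 CPM in DE (log2 change -7.01 ± 0.48). IL17RA had 36.3 and 36.5 CPM in PP1, against 243 and 279 CPM in DE (log2 change -2.84 ± 0.26). Of chemokines and their receptors, 7 of the 21 tested members rose and 4 fell (1 and 4 in every leave-out run, 9 and 5 without PP2 replicate 3), with a median log2 change of 1.41, and of interleukins and their receptors, 9 of the 34 tested members rose and 7 fell (4 and 5 in every leave-out run, 13 and 10 without PP2 replicate 3), with a median log2 change of 0.75.

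**Figure D3:**
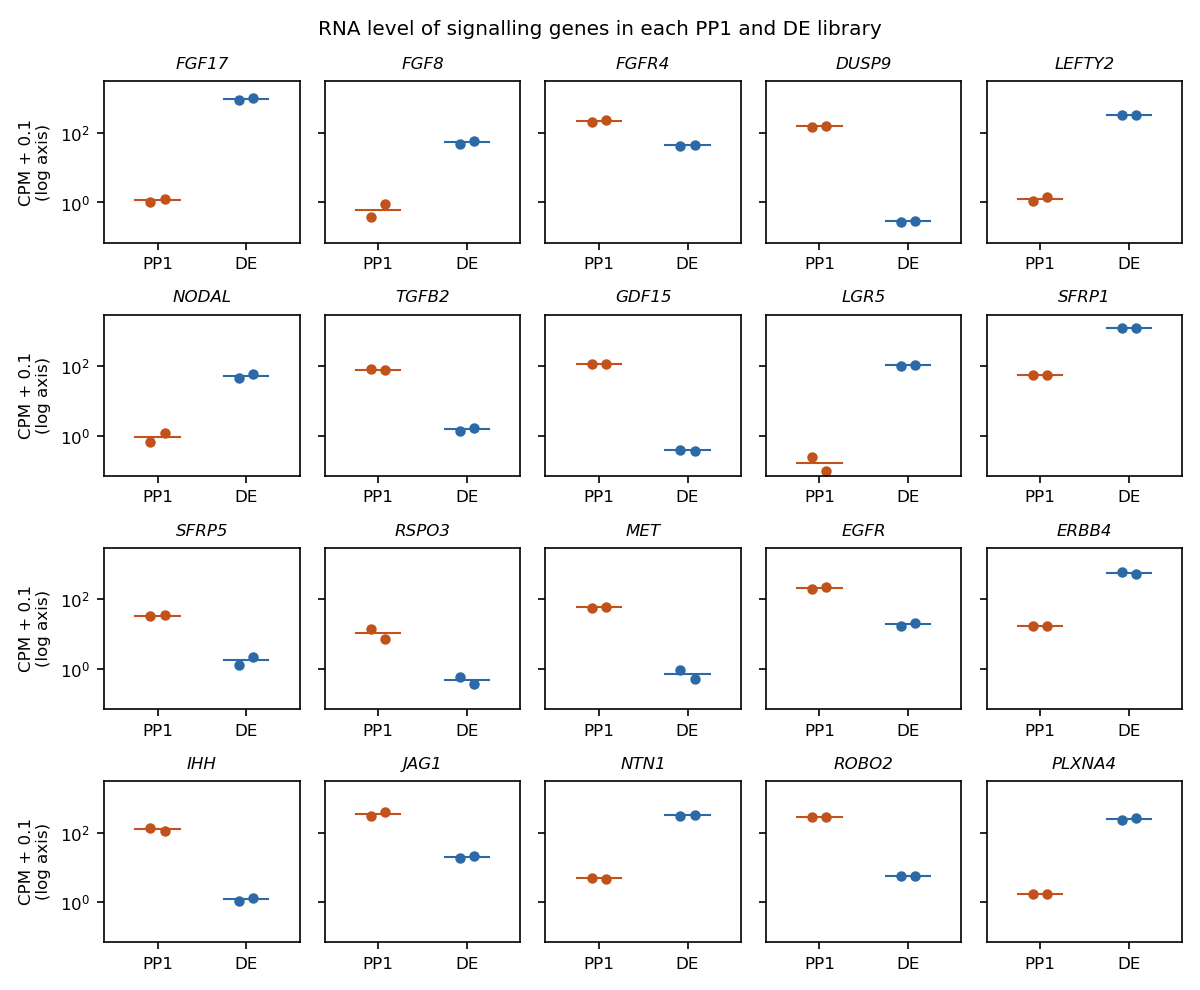
Level of 20 signalling genes in each library, as CPM plus 0.1 on a log axis, with the 2 PP1 libraries on the left and the 2 DE libraries on the right of each panel and a bar at their mean. FGF17, LEFTY2, NODAL, LGR5, ERBB4, NTN1 and PLXNA4 are lower in PP1, and DUSP9, TGFB2, GDF15, MET, IHH, JAG1 and ROBO2 are higher in PP1, with the points of the 2 stages apart for each gene named here.

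Axon guidance genes, which also steer migrating and branching cells outside the nervous system, were among the largest losses. Of semaphorins and plexins, 3 of the 30 tested members rose and 14 fell (1 and 9 in every leave-out run, 5 and 17 without PP2 replicate 3), with a median log2 change of -0.53. PLXNA4 had 1.58 and 1.66 CPM in PP1, against 229 and 266 CPM in DE (log2 change -7.25 ± 0.26, edgeR adjusted p = 8.8e-06). PLXNA2 had 45.9 and 46.7 CPM in PP1, against 791 and 937 CPM in DE (log2 change -4.22 ± 0.52). The ligands SEMA3E and SEMA5A fell. SEMA3E had 21.8 and 18.8 CPM in PP1, against 461 and 505 CPM in DE (log2 change -4.57 ± 0.27). SEMA5A had 32.6 and 35.2 CPM in PP1, against 739 and 798 CPM in DE (log2 change -4.50 ± 0.22). These 4 genes were each above 200 CPM in DE and below 50 CPM in PP1. SEMA5B and SEMA3F fell at log2 changes from -3.96 (SEMA3F) to -4.49 (SEMA5B), and PLXNC1 rose at 2.51 ± 0.24 log2. NTN1, a secreted netrin, had 5.003 and 4.57 CPM in PP1, against 299 and 327 CPM in DE (log2 change -6.03 ± 0.41), and NTN4 fell at -3.36 ± 0.20 log2. Receptors of SLIT and netrin ligands changed in both directions. ROBO2, a SLIT receptor, had 283 and 285 CPM in PP1, against 5.46 and 5.65 CPM in DE (log2 change 5.67 ± 0.19). UNC5B, a netrin receptor, had 142 and 131 CPM in PP1, against 8.25 and 9.83 CPM in DE (log2 change 3.91 ± 0.19). ROBO3 and UNC5D, of the same receptor families, fell at log2 changes from -1.71 (ROBO3) to -1.84 (UNC5D). In the group of SLIT, ROBO, netrin and UNC5 genes, 5 of the 18 tested members rose and 7 fell (2 and 4 in every leave-out run, 9 and 7 without PP2 replicate 3), with a median log2 change of 0.06. Among Eph receptors and ephrins, 5 of the 21 tested members rose and 3 fell (4 and 1 in every leave-out run, 8 and 6 without PP2 replicate 3), with a median log2 change of 0.21. EFNB2 and EPHA4 rose. EFNB2 had 201 and 211 CPM in PP1, against 26.5 and 35.02 CPM in DE (log2 change 2.74 ± 0.29). EPHA4 had 507 and 470.3 CPM in PP1, against 146 and 163 CPM in DE (log2 change 1.66 ± 0.23), and EFNA5 fell at -1.97 ± 0.28 log2.

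Neuronal adhesion genes also fell more often than they rose: 7 of the 41 tested members rose and 15 fell (2 and 10 in every leave-out run, 10 and 18 without PP2 replicate 3), with a median log2 change of -0.55. CNTNAP2, a neurexin-like protein of the axon, had 36.3 and 37.1 CPM in PP1, against 1106 and 1011 CPM in DE (log2 change -4.85 ± 0.19, edgeR adjusted p = 1.2e-05). NFASC, neurofascin, had 2.67 and 2.24 CPM in PP1, against 120.0 and 149 CPM in DE (log2 change -5.78 ± 0.45). L1CAM, CHL1 and SLITRK5 fell at log2 changes from -3.24 (SLITRK5) to -4.48 (L1CAM), while SLITRK4 and CNTN4 rose at log2 changes from 1.80 (CNTN4) to 2.29 (SLITRK4). Markers of neural cells, 12 tested of 20, summed to 119.5 and 131 CPM in PP1, against 404 and 425 CPM in DE, and 2 of the 12 tested members rose and 6 fell (0 and 3 in every leave-out run, 2 and 6 without PP2 replicate 3), with a median log2 change of -0.64. The 3 that fell in every leave-out run were PAX6 and SIX3, given above, and NES. NES, nestin, had 76.7 and 82.1 CPM in PP1, against 226 and 239 CPM in DE (log2 change -1.55 ± 0.22). SOX1, EMX2 and LHX2 had too few counts for a test, with 0 each in PP1 and 5, 5 and 8 over the DE libraries. DCX and MAP2 went the other way, with 553 and 61 counts over the PP1 libraries and 104 and 21 over the DE libraries. The part of neural cells in these losses was not tested.

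Neurotransmitter receptor and potassium channel genes also fell more often than they rose. Of neurotransmitter receptors, 7 of the 63 tested members rose and 26 fell (4 and 11 in every leave-out run, 9 and 28 without PP2 replicate 3), with a median log2 change of -0.47. GRIN2B, an NMDA receptor subunit, had 3.63 and 1.56 CPM in PP1, against 37.3 and 30.8 CPM in DE (log2 change -3.73 ± 0.42). GRIK3, ADRA2C and CHRM3 fell at log2 changes from -1.50 (CHRM3) to -3.70 (GRIK3). Of potassium channel genes, 10 of the 66 tested members rose and 19 fell (6 and 12 in every leave-out run, 15 and 24 without PP2 replicate 3), with a median log2 change of -0.51. KCNK12, a background potassium channel, had 2.06 and 1.66 CPM in PP1, against 171 and 165 CPM in DE (log2 change -6.50 ± 0.36), and KCNG1, KCNH8, KCNJ3 and KCNF1 fell at log2 changes from -2.64 (KCNF1) to -3.65 (KCNJ3). The inward rectifiers KCNJ16 and KCNJ13 rose. KCNJ16 had 19.7 and 24.95 CPM in PP1, against 0 and 0 CPM in DE (at least 241-fold higher). KCNJ13 had 16.8 and 22.5 CPM in PP1, against 2.08 and 2.66 CPM in DE (log2 change 3.05 ± 0.35). TRPA1, an irritant-sensing channel, had 0 and 0.208 CPM in PP1, against 68.9 and 62.2 CPM in DE (log2 change -9.05 ± 0.77).

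Of sodium and calcium channel genes, 7 of the 39 tested members rose and 12 fell (5 and 3 in every leave-out run, 8 and 16 without PP2 replicate 3), with a median log2 change of -0.35. SCN7A, a sodium-sensing member of the family, had 68.3 and 51.4 CPM in PP1, against 0 and 0.0665 CPM in DE (1872-fold higher, exact 95% counting interval 336 to 73968). SCN9A, a channel of pain neurons, had 27.8 and 30.98 CPM in PP1, against 0 and 0.0665 CPM in DE (945-fold higher, exact 95% counting interval 169 to 37356). Neither had more than 3 counts in DE. The neuronal calcium channel CACNA1B fell and its relative CACNA1D, a channel of beta cells, rose, at -5.27 ± 0.38 and 2.60 ± 0.22 log2. Chloride channels changed in both directions, and 8 of the 31 tested members rose and 4 fell (5 and 4 in every leave-out run, 12 and 10 without PP2 replicate 3), with a median log2 change of -0.02. CFTR, the chloride channel mutated in cystic fibrosis, had 90.1 and 102 CPM in PP1, against 3.15 and 1.93 CPM in DE (log2 change 5.23 ± 0.40, edgeR adjusted p = 0.00012). ANO1, a calcium-activated chloride channel, had 27.1 and 26.8 CPM in PP1, against 2.08 and 2.59 CPM in DE (log2 change 3.53 ± 0.42). Its relatives ANO2, ANO4 and ANO5 fell at log2 changes from -1.82 (ANO5) to -2.75 (ANO2), and LRRC8B, a volume-regulated channel subunit, fell at -0.97 ± 0.17 log2. The bicarbonate cotransporter SLC4A4 had 39.2 and 65.5 CPM in PP1, against 4.63 and 3.26 CPM in DE (log2 change 3.73 ± 0.30). AQP3, a water and glycerol channel, had 28.1 and 26.9 CPM in PP1, against 0.95 and 1.13 CPM in DE (log2 change 4.72 ± 0.24). CFTR, ANO1, SLC4A4 and AQP3 were below 5 CPM in DE. TRPV6, a calcium uptake channel of gut epithelium, had 51.4 and 42.1 CPM in PP1, against 4.75 and 5.91 CPM in DE (log2 change 3.13 ± 0.27). PIEZO2, a stretch-gated channel, had 405 and 433 CPM in PP1, against 35.8 and 33.2 CPM in DE (log2 change 3.60 ± 0.19). SCNN1A, the epithelial sodium channel alpha subunit, fell at -1.71 ± 0.27 log2.

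Solute carriers, the largest transporter family, rose more often than they fell: 74 of the 326 tested members rose and 44 fell (40 and 22 in every leave-out run, 127 and 80 without PP2 replicate 3), with a median log2 change of 0.20. SLCO2B1, an organic anion transporter of liver and gut, had 38.7 and 43.1 CPM in PP1, against 0.119 and 0.199 CPM in DE (log2 change 7.96 ± 0.50). SLC19A3, a thiamine transporter, had 118 and 137 CPM in PP1, against 1.07 and 0.399 CPM in DE (log2 change 7.41 ± 0.57, edgeR adjusted p = 9.1e-05). SLC30A10, a manganese exporter, had 11.1 and 13.5 CPM in PP1, against 0.0593 and 0.266 CPM in DE (log2 change 6.22 ± 0.66). SLC47A1, which exports organic cations, had 48.4 and 55.8 CPM in PP1, against 2.2 and 2.39 CPM in DE (log2 change 4.50 ± 0.46). Each of these 4 carriers lay below 3 CPM in DE and above 10 CPM in PP1. Amino acid carriers formed the next group. SLC7A7, the light chain of a basic amino acid exchanger, had 159 and 170.3 CPM in PP1, against 5.34 and 5.25 CPM in DE (log2 change 4.96 ± 0.28). SLC1A3 and SLC1A4, carriers of glutamate and of serine and alanine, rose. SLC1A3 had 134.5 and 127 CPM in PP1, against 5.4 and 3.92 CPM in DE (log2 change 4.81 ± 0.32). SLC1A4 had 87.5 and 75.5 CPM in PP1, against 8.72 and 9.24 CPM in DE (log2 change 3.18 ± 0.25). SLC6A9 (glycine), SLC7A1 (arginine and lysine) and SLC43A1 (leucine and other large neutral amino acids) rose at log2 changes from 2.94 (SLC7A1) to 4.16 (SLC43A1). SLC7A11, the cystine carrier, had 466 and 439 CPM in PP1 and 28.7 and 21.1 CPM in DE, but its call was lost in some leave-out runs (edgeR adjusted p = 0.00933).

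Among carriers that fell, SLC7A14 had 0 and 0 CPM in PP1, against 17.7 and 15.2 CPM in DE (at least 186-fold lower). SLC24A2, a sodium, potassium and calcium exchanger of neurons and cones, had 0 and 0.26 CPM in PP1, against 35.6 and 33.2 CPM in DE (log2 change -7.82 ± 0.78). The sodium and calcium exchanger SLC8A2 had 0.137 and 0.052 CPM in PP1, against 10.7 and 14.4 CPM in DE (140.3-fold lower, exact 95% counting interval 47.7 to 683). SLC35F3, SLC9A5, SLCO3A1, SLC34A2, SLC38A5 and SLC39A8 fell at log2 changes from -2.40 (SLC39A8) to -5.14 (SLCO3A1). The glucose transporter SLC2A3 (GLUT3) had 601 and 544 CPM in PP1 and 4125 and 3711 CPM in DE, a call kept in all but 1 of the leave-out runs, while SLC2A1 (GLUT1) had 79.6 and 117 CPM in PP1 and 42.02 and 57.3 CPM in DE. Of ABC transporters, 8 of the 40 tested members rose and 5 fell (4 and 3 in every leave-out run, 13 and 9 without PP2 replicate 3), with a median log2 change of 0.08. ABCC4, which exports cyclic nucleotides and drugs, had 62.99 and 65.5 CPM in PP1, against 257 and 272 CPM in DE (log2 change -2.04 ± 0.25). Of P-type ATPases, 9 of the 36 tested members rose and 5 fell (6 and 3 in every leave-out run, 15 and 9 without PP2 replicate 3), with a median log2 change of 0.19. ATP13A4 had 28.9 and 29.8 CPM in PP1, against 0.653 and 0.399 CPM in DE (log2 change 5.77 ± 0.40). The sodium pump beta subunit ATP1B1 had 318 and 348 CPM in PP1, against 94.8 and 92.2 CPM in DE (log2 change 1.83 ± 0.24). The phospholipid flippase ATP8A1 had 5.003 and 7.43 CPM in PP1, against 119 and 125 CPM in DE (log2 change -4.29 ± 0.42).

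**Figure D4:**
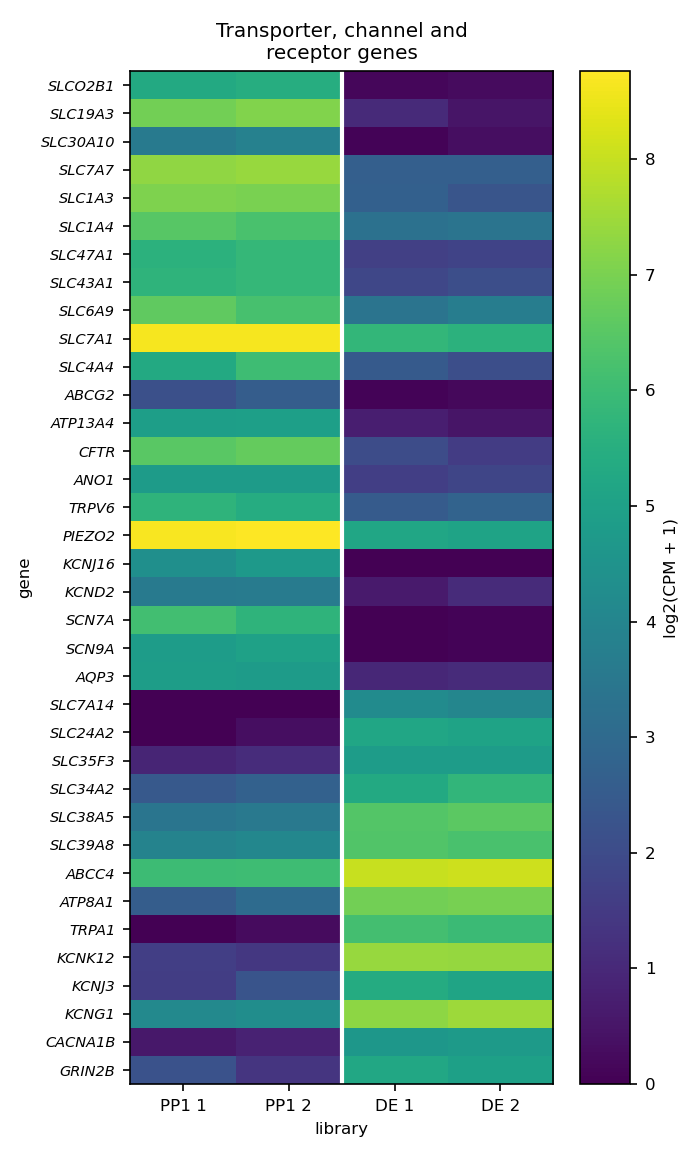
Level of 36 transporter, channel and receptor genes (rows) in the 2 PP1 and 2 DE libraries (columns), coloured by log2 of CPM plus 1. Genes in the upper block, among them SLC19A3, SLC7A7, CFTR and PIEZO2, are brighter in the PP1 columns, and genes in the lower block, among them SLC24A2, KCNK12 and TRPA1, are brighter in the DE columns.

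Enzymes that make serine and load folate with carbon mostly rose: 13 of the 22 tested members rose and 1 fell (9 and 0 in every leave-out run, 15 and 1 without PP2 replicate 3), with a median log2 change of 1.57. PHGDH and PSAT1, the opening steps of serine synthesis, rose. PHGDH had 504 and 530.0 CPM in PP1, against 85.8 and 80.1 CPM in DE (log2 change 2.64 ± 0.27, edgeR adjusted p = 0.00036). PSAT1 had 238 and 240.4 CPM in PP1, against 26.2 and 22.5 CPM in DE (log2 change 3.30 ± 0.37). PSPH, the last step, had 80.3 and 93.2 CPM in PP1 and 27.4 and 24.5 CPM in DE (log2 change 1.74 ± 0.35). The mitochondrial folate enzyme SHMT2 had 452 and 428 CPM in PP1 and 69.1 and 64.3 CPM in DE (log2 change 2.72 ± 0.51). MTHFD2, which acts after it, had 275 and 324 CPM in PP1 and 50.3 and 39.1 CPM in DE (log2 change 2.74 ± 0.72). These 3 genes were higher in PP1 (edgeR adjusted p = 0.00937, 0.0082 and 0.0331), but their calls were lost in some leave-out runs. ALDH1L2 and FTCD, further folate enzymes, rose at log2 changes from 3.99 (ALDH1L2) to 5.76 (FTCD). GLDC, which splits glycine, and AHCY, which clears S-adenosylhomocysteine, rose. GLDC had 176 and 176 CPM in PP1, against 50.98 and 51.9 CPM in DE (log2 change 1.77 ± 0.17). AHCY had 494 and 518 CPM in PP1, against 172 and 161 CPM in DE (log2 change 1.61 ± 0.21). CTH, which makes cysteine, had 102 and 101 CPM in PP1, against 11.5 and 11.8 CPM in DE (log2 change 3.12 ± 0.50). PCK2, the mitochondrial phosphoenolpyruvate carboxykinase, had 183 and 179.6 CPM in PP1, against 16.5 and 15.1 CPM in DE (log2 change 3.52 ± 0.40). Several of these genes, such as PHGDH, PSAT1, CTH and PCK2, are known targets of ATF4.

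Some enzymes of amino acid breakdown rose. TDO2, which opens the tryptophan ring, had 11.3 and 14.7 CPM in PP1, against 0.0593 and 0.133 CPM in DE (141-fold higher, exact 95% counting interval 47.9 to 685). PRODH and GLUD1 rose at log2 changes from 1.88 (GLUD1) to 1.99 (PRODH). DDC, which makes dopamine and serotonin, had 15.3 and 19.02 CPM in PP1, against 0 and 0 CPM in DE (at least 185-fold higher). In the list of amino acid catabolism and urea cycle genes, 7 of the 26 tested members rose and 1 fell (5 and 1 in every leave-out run, 9 and 4 without PP2 replicate 3), with a median log2 change of 0.37. In glucose metabolism the hexokinases changed: HKDC1 had 40.7 and 46.4 CPM in PP1, against 0 and 0 CPM in DE (at least 467-fold higher). HK2 had 115 and 122 CPM in PP1, against 26.5 and 27.7 CPM in DE (log2 change 2.13 ± 0.17). PFKP rose at 2.08 ± 0.20 log2. LDHA, lactate dehydrogenase, had 77.3 and 76.1 CPM in PP1, against 229 and 225 CPM in DE (log2 change -1.56 ± 0.17). PFKL fell at -1.19 ± 0.19 log2. Of glycolysis genes, 4 of the 23 tested members rose and 6 fell (2 and 2 in every leave-out run, 6 and 14 without PP2 replicate 3), with a median log2 change of -0.45.

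Lipid genes changed in both directions. Of fatty acid synthesis and lipid storage genes, 6 of the 23 tested members rose and 2 fell (3 and 0 in every leave-out run, 9 and 8 without PP2 replicate 3), with a median log2 change of 0.13. MTTP, which loads lipid onto apolipoprotein B, had 337 and 373 CPM in PP1, against 0.119 and 0.133 CPM in DE (log2 change 11.39 ± 0.73, edgeR adjusted p = 1.5e-05), and of apolipoproteins, 5 of the 9 tested members rose and 0 fell (3 and 0 in every leave-out run, 5 and 0 without PP2 replicate 3), with a median log2 change of 1.59. LIPC, hepatic lipase, had 66.8 and 81.7 CPM in PP1, against 0.297 and 0.133 CPM in DE (log2 change 8.36 ± 0.70). The endothelial lipase LIPG had 92.6 and 93.7 CPM in PP1, against 14.8 and 14.4 CPM in DE (log2 change 2.67 ± 0.23). CPT1A, which admits long-chain fatty acids into mitochondria, fell and had 1.3 and 1.4 CPM in PP1, against 28.1 and 29.6 CPM in DE (log2 change -4.40 ± 0.24). FABP1, the liver fatty acid binding protein, had 9.94 and 10.7 CPM in PP1, against 0 and 0 CPM in DE (at least 110.3-fold higher). Of fatty acid oxidation and ketogenesis genes, 5 of the 29 tested members rose and 4 fell (3 and 3 in every leave-out run, 8 and 11 without PP2 replicate 3), with a median log2 change of -0.02. For cholesterol synthesis, 1 of the 24 tested members rose and 5 fell (0 and 1 in every leave-out run, 4 and 11 without PP2 replicate 3), with a median log2 change of -0.25.

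Conjugating enzymes, which tag steroids, drugs and bile acids for export, mostly rose: 12 of the 15 tested members rose and 1 fell (9 and 1 in every leave-out run, 12 and 2 without PP2 replicate 3), with a median log2 change of 4.14. SULT2A1, which sulfates steroids and bile acids, had 9.05 and 15.4 CPM in PP1, against 0 and 0 CPM in DE (at least 135-fold higher). SULT1C2 had 32.9 and 29.1 CPM in PP1, against 0.297 and 0.598 CPM in DE (log2 change 6.11 ± 0.52). UGT2B11 had 19.2 and 27.6 CPM in PP1, against 0.237 and 0 CPM in DE (log2 change 7.47 ± 1.37), although UGT2B genes are close copies whose reads may be split. GSTA2 and GSTA1, also near copies, rose. GSTA2 had 103 and 108 CPM in PP1, against 0.297 and 0.332 CPM in DE (log2 change 8.37 ± 0.36). GSTA1 had 61.2 and 58.01 CPM in PP1, against 3.92 and 3.72 CPM in DE (log2 change 3.96 ± 0.43). AKR1D1, a reductase of bile acid synthesis, had 61.8 and 69.9 CPM in PP1, against 0 and 0 CPM in DE (at least 706-fold higher). GPX2, a glutathione peroxidase of gut epithelium, had 59.3 and 42.8 CPM in PP1, against 3.15 and 4.25 CPM in DE (log2 change 3.79 ± 0.30). HMOX1, heme oxygenase, had 49.1 and 47.4 CPM in PP1, against 13.7 and 13.1 CPM in DE (log2 change 1.85 ± 0.26).

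Retinoid genes, which make, bind and destroy retinoic acid, changed in both directions: 7 of the 23 tested members rose and 5 fell (6 and 4 in every leave-out run, 12 and 7 without PP2 replicate 3), with a median log2 change of 0.84. ALDH1A1, which makes retinoic acid, had 47.2 and 67.9 CPM in PP1, against 0.178 and 0.0665 CPM in DE (log2 change 8.77 ± 0.75). ALDH1A3, which catalyses the same step, had 5.21 and 3.43 CPM in PP1, against 38.6 and 37.5 CPM in DE (log2 change -3.14 ± 0.40). CYP26B1, which destroys retinoic acid and is induced by it, had 63.9 and 89.8 CPM in PP1, against 0.356 and 0.465 CPM in DE (log2 change 7.53 ± 0.75). CRABP1 and CRABP2, cellular binding proteins, fell: CRABP1 had 0 and 0.052 CPM in PP1, against 9.73 and 14.3 CPM in DE (402-fold lower, exact 95% counting interval 71.7 to 15917). CRABP2 had 10.6 and 11.8 CPM in PP1, against 148 and 145 CPM in DE (log2 change -3.71 ± 0.28). Of iron, heme and copper genes, 11 of the 28 tested members rose and 5 fell (6 and 1 in every leave-out run, 14 and 7 without PP2 replicate 3), with a median log2 change of 0.69. The metallothioneins MT1E, MT1F and MT2A, near copies that bind zinc and copper, rose at log2 changes from 3.96 (MT1F) to 5.66 (MT1E). The ferric reductases STEAP1 and STEAP3 rose at log2 changes from 1.87 (STEAP3) to 3.91 (STEAP1).

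Genes of secreted plasma proteins made up many of the largest gains. Of coagulation genes, 15 of the 24 tested members rose and 3 fell (11 and 2 in every leave-out run, 17 and 3 without PP2 replicate 3), with a median log2 change of 2.11. The fibrinogen chains FGA and FGB rose. FGA had 306 and 283 CPM in PP1, against 0.534 and 0.199 CPM in DE (log2 change 9.59 ± 0.85). FGB had 877 and 856 CPM in PP1, against 0 and 0 CPM in DE (at least 9196-fold higher, edgeR adjusted p = 4.8e-05). F2, prothrombin, had 115 and 99.8 CPM in PP1, against 0.653 and 0.532 CPM in DE (log2 change 7.48 ± 0.41). HABP2, a plasma protease, had 239 and 246 CPM in PP1, against 0.356 and 0.332 CPM in DE (log2 change 9.43 ± 0.50). TFPI, the inhibitor of the tissue factor pathway, had 402 and 361 CPM in PP1, against 1.36 and 0.93 CPM in DE (log2 change 8.36 ± 0.46). Each was at most 2 CPM in every DE library and above 80 CPM in every PP1 library. Of serpins, inhibitors of serine proteases, 11 of the 19 tested members rose and 2 fell (9 and 2 in every leave-out run, 13 and 2 without PP2 replicate 3), with a median log2 change of 2.70. SERPINF2, antiplasmin, had 117 and 105 CPM in PP1, against 0.594 and 0.731 CPM in DE (log2 change 7.38 ± 0.26). SERPINA5 had 19.2 and 33.6 CPM in PP1, against 0.119 and 0.266 CPM in DE (log2 change 7.08 ± 0.89). SERPINB9 and SERPINE2 fell at log2 changes from -1.50 (SERPINE2) to -2.75 (SERPINB9). Of complement genes, 9 of the 19 tested members rose and 2 fell (5 and 1 in every leave-out run, 11 and 3 without PP2 replicate 3), with a median log2 change of 1.33. C5, which starts the terminal pathway, had 237 and 225 CPM in PP1, against 7.77 and 7.11 CPM in DE (log2 change 4.95 ± 0.43). CLU, clusterin, had 243 and 240.5 CPM in PP1, against 14.8 and 15.2 CPM in DE (log2 change 4.01 ± 0.22). C3, the central component, was lower, with 8.16 and 9.25 CPM in PP1, against 28.5 and 35.2 CPM in DE (log2 change -1.87 ± 0.26). AMBP and VTN, further plasma proteins, rose at log2 changes from 5.48 (VTN) to 7.77 (AMBP). ASGR2, a subunit of the receptor that clears plasma glycoproteins, had 17.4 and 14.2 CPM in PP1, against 0 and 0 CPM in DE (at least 166-fold higher). ASGR1, the other subunit of that receptor, had 103 counts over the PP1 libraries and 98 over the DE libraries.

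Liver markers moved with these gains. The 20 tested members of a list of 23 hepatic markers summed to 14339.8 and 15296 CPM in PP1, against 194 and 203 CPM in DE, and 8 of the 23 were at 0 in DE. Of the 20 tested members, 15 rose and 1 fell (16 and 1 without PP2 replicate 3). AFP and APOB were the largest members, with 230144 and 151589 counts over the PP1 libraries and 0 and 97 over the DE libraries. Many plasma protein genes are members of that list or are made by liver, yolk sac and, in part, gut. Markers of extraembryonic endoderm, 15 tested of 15 and partly the same genes, summed to 15607 and 16712 CPM in PP1, against 7380.4 and 7845 CPM in DE. Of these 15, 6 rose and 2 fell (8 and 4 without PP2 replicate 3), and AFP was again the largest member in PP1. Intestinal markers, 13 tested of 19, summed to 599 and 674 CPM in PP1, against 147 and 152 CPM in DE, and stomach and foregut markers, 9 tested of 16, summed to 169 and 177 CPM in PP1, against 38.9 and 39.3 CPM in DE. Of the intestinal markers, 7 rose and 2 fell (7 and 3 without PP2 replicate 3). VIL1 was the largest of them in PP1, and LGR5, given above, fell. Of the stomach and foregut markers, 5 rose and 2 fell (5 and 3 without PP2 replicate 3). Pancreatic progenitor markers, 21 tested of 21, summed to 3851 and 4022 CPM in PP1, against 1482 and 1549 CPM in DE, with PDX1, NKX6-1 and TFF3 at 0 in DE. Of these 21, 8 rose and 3 fell (10 and 5 without PP2 replicate 3). ONECUT2 was by far the largest in PP1, with 77383 counts over the PP1 libraries and 414 over the DE libraries. Some members had fewer counts in PP1 than in DE, among them GATA6 (6304 and 17565) and NKX2-2 (2 and 61). How far cells of other endodermal types contributed to the changes was not tested.

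Promoters of some plasma protein genes hold sites of homeodomain factors. The promoter windows of RefSeq (GRCh38.p14, 250 bases before to 50 after the start of a gene) were therefore read for the letters GTTAAT on either strand, a homeodomain core. The core was in 21 of 139 (15.1%) windows of protein-coding genes that rose 20-fold or more to at least 10 CPM, and in 66 of 847 (7.79%) of all protein-coding genes that rose in every leave-out run. It was in 26 of 631 (4.12%) of those that fell in every leave-out run, in 8 of 93 (8.6%) of those that fell 20-fold or more from at least 10 CPM, and in 501 of 12201 (4.11%) of all tested protein-coding genes with a window. The windows of the strongly risen genes were also poorer in G and C, at 56.5% against 63.8% over all windows. Other letters were searched on both strands in the same way. The SOX motif AACAAAG was in 18 of 139 (12.9%), against 2 of 93 (2.15%) of the strongly fallen and 447 of 12201 (3.66%) of all windows. The forkhead motif TGTTTAC was in 7 of 139 (5.04%), against 3 of 93 (3.23%) of the strongly fallen and 283 of 12201 (2.32%) of all. The motif of the GATA factors was in 18 of 139 (12.9%), against 10 of 93 (10.8%) of the strongly fallen and 705 of 12201 (5.78%) of all, searched as AGATAA. The TATA box, searched as TATAAA, was in 20 of 139 (14.4%), against 15 of 93 (16.1%) of the strongly fallen and 808 of 12201 (6.62%) of all. The E-box of MYC, searched as CACGTG, was in 9 of 139 (6.47%), against 5 of 93 (5.38%) of the strongly fallen and 1162 of 12201 (9.52%) of all. The letters CCAAT were in 48 of 139 (34.5%), against 28 of 93 (30.1%) of the strongly fallen and 4440 of 12201 (36.4%) of all. The core followed by any base and its reverse complement, ATTAAC, was in 0 of 139 (0%) and 0 of 12201 (0%). The longer motifs of HNF4, CEBP, CEBP with ATF, T-box and SMAD proteins, searched as exact letters, were each in at most 2 of the 139 windows. The groups were formed from the RNA changes themselves, the shares are a description, and the part of base composition was not tested.

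Among the 21 strongly risen genes with the core, 4 plasma protein genes are shown with the 160 bases that precede their start, to let the position of the core be seen. They were chosen from genes that hold the core. Other plasma protein genes that rose, such as TFPI, SERPINF2 and AMBP, were not among the 21, for lack of the core or of a window. AFP lies at chr4:73436061-73436220, plus strand, FGA at chr4:154590743-154590902, minus strand, FGB at chr4:154562820-154562979, plus strand and F2 at chr11:46719053-46719212, plus strand (RefSeq, GRCh38.p14). Capitals mark the core, written GTTAAT or, on the other strand, ATTAAC. It begins 132 bases before the start of AFP, 52 before FGA, 51 before FGB and 34 before F2.
AFP: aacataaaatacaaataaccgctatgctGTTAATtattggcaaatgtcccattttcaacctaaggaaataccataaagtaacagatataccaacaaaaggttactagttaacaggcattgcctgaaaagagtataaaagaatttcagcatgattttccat
FGA: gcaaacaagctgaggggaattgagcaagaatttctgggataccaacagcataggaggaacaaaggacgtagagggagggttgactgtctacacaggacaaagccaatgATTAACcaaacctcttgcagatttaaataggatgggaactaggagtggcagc
FGB: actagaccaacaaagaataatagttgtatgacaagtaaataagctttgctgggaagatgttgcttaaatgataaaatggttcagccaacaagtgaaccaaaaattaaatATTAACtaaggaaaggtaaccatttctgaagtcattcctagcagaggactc
F2: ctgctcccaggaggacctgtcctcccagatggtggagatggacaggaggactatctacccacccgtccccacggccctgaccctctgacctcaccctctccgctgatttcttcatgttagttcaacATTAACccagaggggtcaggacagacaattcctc

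FGA and FGB are neighbours on chromosome 4, transcribed from opposite strands, and in both windows the core lies about the same distance before the start. AFP, alpha-fetoprotein of the fetal liver and yolk sac, had 6566 and 6984 CPM in PP1, against 0 and 0 CPM in DE (at least 72339-fold higher, edgeR adjusted p = 4.9e-05). The windows say nothing of whether a factor was bound.

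Junction and adhesion genes changed in both directions. Of cadherins, 13 of the 30 tested members rose and 6 fell (8 and 3 in every leave-out run, 15 and 11 without PP2 replicate 3), with a median log2 change of 0.61. CDH6 had 475 and 603 CPM in PP1, against 0.297 and 0.532 CPM in DE (log2 change 10.34 ± 0.35, edgeR adjusted p = 6.6e-06). CDH17, the liver-intestine cadherin, had 22.8 and 25.5 CPM in PP1, against 0.119 and 0.399 CPM in DE (log2 change 6.54 ± 0.56). CDH1, E-cadherin, had 337 and 400.4 CPM in PP1, against 117 and 131 CPM in DE (log2 change 1.58 ± 0.20). CDH2, N-cadherin, did not pass (1053 and 1117 CPM in PP1 and 1367 and 1376 CPM in DE, edgeR adjusted p = 0.321), and the neural members CDH4 and CDH8 fell at log2 changes from -3.02 (CDH4) to -3.45 (CDH8). Of claudins and tight junction genes, 9 of the 26 tested members rose and 3 fell (6 and 2 in every leave-out run, 12 and 6 without PP2 replicate 3), with a median log2 change of 0.28. CLDN4 had 36.5 and 36.7 CPM in PP1, against 1.36 and 1.59 CPM in DE (log2 change 4.62 ± 0.32) and occludin, OCLN, had 311 and 367 CPM in PP1, against 111 and 111 CPM in DE (log2 change 1.61 ± 0.21). Of transmembrane serine proteases and their relatives, 14 of the 32 tested members rose and 2 fell (8 and 1 in every leave-out run, 19 and 2 without PP2 replicate 3), with a median log2 change of 1.09. ST14, matriptase, had 93.4 and 99.1 CPM in PP1, against 16.7 and 13.2 CPM in DE (log2 change 2.69 ± 0.20). PRSS22 had 19.4 and 14.7 CPM in PP1, against 0.178 and 0.0665 CPM in DE (log2 change 7.01 ± 0.80). CD24, a surface protein of many epithelial progenitors, had 1289 and 1355 CPM in PP1, against 275 and 256 CPM in DE (log2 change 2.31 ± 0.36).

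Integrins, which tie cells to matrix, changed in both directions: 6 of the 21 tested members rose and 6 fell (6 and 5 in every leave-out run, 9 and 6 without PP2 replicate 3), with a median log2 change of 0.38. ITGA2 and ITGB8 rose and ITGA9 and ITGB5 fell: ITGB8 had 127 and 130.3 CPM in PP1, against 17.7 and 18.6 CPM in DE (log2 change 2.82 ± 0.29). ITGB5 had 96.9 and 104 CPM in PP1, against 651 and 681 CPM in DE (log2 change -2.73 ± 0.28). ITGA2 and ITGA9 changed by 4.93 ± 0.34 and -3.41 ± 0.26 log2. Among collagens, 8 of the 41 tested members rose and 14 fell (6 and 10 in every leave-out run, 15 and 16 without PP2 replicate 3), with a median log2 change of -0.19. COL3A1, a fibrillar collagen of mesenchyme, had 79.4 and 88.8 CPM in PP1, against 0 and 0 CPM in DE (at least 901-fold higher). COL12A1 had 42.02 and 42.4 CPM in PP1, against 0.178 and 0.399 CPM in DE (log2 change 7.18 ± 0.54). COL6A2 and COL9A3 fell. COL6A2 had 89.2 and 91.5 CPM in PP1, against 605 and 699 CPM in DE (log2 change -2.85 ± 0.25). COL9A3 had 37.97 and 35.5 CPM in PP1, against 211 and 212 CPM in DE (log2 change -2.53 ± 0.20). Of laminins, chains of the basement membrane, 5 of the 11 tested members rose and 2 fell (3 and 1 in every leave-out run, 9 and 2 without PP2 replicate 3), with a median log2 change of 0.93. LAMB1 had 1615 and 1557 CPM in PP1, against 349 and 345 CPM in DE (log2 change 2.19 ± 0.23). LAMC1 rose at 1.93 ± 0.21 log2 and LAMA4 fell at -3.55 ± 0.49 log2. VCAN, the proteoglycan versican, had 6171 and 5639 CPM in PP1, against 236 and 193 CPM in DE (log2 change 4.78 ± 0.23, edgeR adjusted p = 1.9e-05). SPOCK2 had 126 and 119 CPM in PP1, against 1.84 and 1.33 CPM in DE (log2 change 6.26 ± 0.26). In the list of basement membrane and matrix genes, 14 of the 35 tested members rose and 5 fell (9 and 5 in every leave-out run, 22 and 10 without PP2 replicate 3), with a median log2 change of 0.78. Mesenchyme markers, 16 tested of 18, summed to 1085 and 1329 CPM in PP1, against 499 and 463 CPM in DE, and 5 of the 16 tested members rose and 2 fell (5 and 0 in every leave-out run, 7 and 5 without PP2 replicate 3), with a median log2 change of 0.46. The 5 that rose were COL3A1, VIM, ACTA2, LUM and POSTN. VIM, vimentin, had 602 and 773 CPM in PP1, against 254 and 199 CPM in DE (log2 change 1.601 ± 0.24). LUM, lumican, had 2.95 and 4.83 CPM in PP1, against 0.119 and 0.0665 CPM in DE (42.7-fold higher, exact 95% counting interval 14.3 to 209.9). ACTA2, smooth muscle actin, had 2.47 and 2.5 CPM in PP1, against 0 and 0 CPM in DE (at least 26.4-fold higher). POSTN, periostin, had 2.81 and 2.7 CPM in PP1, against 0.119 and 0.133 CPM in DE (log2 change 4.38 ± 0.76). COL1A1 did not pass (228 and 263 CPM in PP1 and 43.3 and 52.8 CPM in DE, edgeR adjusted p = 0.0758), and MEOX1 was at 0 in each stage. Their part in the collagen changes was not tested.

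The heparan sulfate proteoglycans GPC3 and GPC4, which tune growth factor binding, moved in opposite directions: GPC3, also a marker of fetal liver, had 476 and 613 CPM in PP1, against 19.5 and 19.3 CPM in DE (log2 change 4.81 ± 0.21). GPC4 had 27.2 and 29.7 CPM in PP1, against 525 and 583 CPM in DE (log2 change -4.28 ± 0.27). CHST3, CHST9 and HS6ST2, which add sulfate, rose at log2 changes from 2.44 (CHST9) to 3.81 (HS6ST2), and CHST11 and SULF2 fell at log2 changes from -1.23 (SULF2) to -1.68 (CHST11). Of transferases for O-linked sugars, fucose and sialic acid, 12 of the 68 tested members rose and 23 fell (7 and 15 in every leave-out run, 21 and 30 without PP2 replicate 3), with a median log2 change of -0.29. ST8SIA3 had 189 and 187 CPM in PP1, against 4.04 and 5.32 CPM in DE (log2 change 5.33 ± 0.28). GCNT4 had 57.02 and 63.9 CPM in PP1, against 2.79 and 2.39 CPM in DE (log2 change 4.54 ± 0.41). ST6GALNAC1 had 70.3 and 64.8 CPM in PP1, against 4.15 and 3.12 CPM in DE (log2 change 4.21 ± 0.36). GALNT17 had 4.18 and 3.64 CPM in PP1, against 197 and 218 CPM in DE (log2 change -5.73 ± 0.20). B3GNT5 had 15.4 and 20.1 CPM in PP1, against 154 and 142 CPM in DE (log2 change -3.06 ± 0.20). Libraries of the stages did not overlap for any of these enzymes, which the rule for naming them required.

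RNA-binding regulators of editing, splicing and decay changed in both directions. A1CF, the cofactor of apolipoprotein B RNA editing, had 61 and 76 CPM in PP1, against 0.237 and 0.465 CPM in DE (log2 change 7.60 ± 0.37). RBM47, which acts in the same editing complex, had 246 and 248 CPM in PP1, against 45.8 and 40.9 CPM in DE (log2 change 2.51 ± 0.17). MBNL1 and MBNL2, which drive the switch to differentiated splicing, rose. MBNL1 had 28.6 and 29.7 CPM in PP1, against 1.19 and 3.26 CPM in DE (log2 change 3.72 ± 0.40). MBNL2 had 65.2 and 61.5 CPM in PP1, against 13 and 12.2 CPM in DE (log2 change 2.33 ± 0.23). HMGA2, an architectural chromatin protein of early embryos, had 118 and 133 CPM in PP1, against 784 and 730.5 CPM in DE (log2 change -2.60 ± 0.20), and CELF2 and ELAVL2 fell at log2 changes from -2.20 (CELF2) to -2.99 (ELAVL2). LIN28A and LIN28B, which block let-7 microRNAs, did not pass. LIN28A had 1056 and 1095 CPM in PP1 and 1666 and 1539.9 CPM in DE (edgeR adjusted p = 0.0772). LIN28B had 123.4 and 132 CPM in PP1 and 165 and 142 CPM in DE (edgeR adjusted p = 0.427). In this list, 5 of the 32 tested members rose and 9 fell (4 and 4 in every leave-out run, 9 and 16 without PP2 replicate 3), with a median log2 change of -0.19.

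Of chromatin and DNA methylation genes, 5 of the 24 tested members rose and 2 fell (4 and 1 in every leave-out run, 11 and 6 without PP2 replicate 3), with a median log2 change of 0.11. DNMT3B, the methyltransferase of early embryos, had 66.1 and 76.8 CPM in PP1, against 352 and 368 CPM in DE (log2 change -2.33 ± 0.20, edgeR adjusted p = 0.00016). TET2, which oxidises methylated cytosine, had 89.1 and 82.9 CPM in PP1, against 38.8 and 40.7 CPM in DE (log2 change 1.11 ± 0.17). The remodelling ATPase SMARCA2 had 35.1 and 41.1 CPM in PP1, against 5.4 and 6.65 CPM in DE (log2 change 2.66 ± 0.26). Of ZNF genes, many of them KRAB zinc fingers that silence transposable elements, 34 of the 467 tested members rose and 64 fell (3 and 24 in every leave-out run, 115 and 162 without PP2 replicate 3), with a median log2 change of -0.14. ZNF730 and ZNF90 fell at log2 changes from -2.02 (ZNF90) to -2.60 (ZNF730), and ZNF165 and ZNF33B rose at log2 changes from 1.83 (ZNF33B) to 2.13 (ZNF165), although reads of clustered ZNF copies may be split. IFITM1, IFITM3 and BST2, antiviral membrane proteins, fell at log2 changes from -2.07 (IFITM3) to -5.45 (IFITM1). IFI16, a DNA sensor, had 136 and 108 CPM in PP1, against 1.6 and 3.46 CPM in DE (log2 change 5.60 ± 0.45).

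CDKN1A and CDKN2B, inhibitors of cyclin-dependent kinases, rose, and CDK6 and cyclin D1 fell. CDKN1A (a p53 target) had 27.2 and 27.2 CPM in PP1, against 3.8 and 2.79 CPM in DE (log2 change 3.04 ± 0.37). CDKN2B (a TGF-beta target) had 45.4 and 52.6 CPM in PP1, against 1.6 and 3.52 CPM in DE (log2 change 4.26 ± 0.43). CDK6 had 166 and 174 CPM in PP1, against 923 and 792 CPM in DE (log2 change -2.34 ± 0.25). CCND1, cyclin D1, had 52.98 and 61.96 CPM in PP1, against 152 and 143 CPM in DE (log2 change -1.36 ± 0.19). MYC was higher, with 40.03 and 49.8 CPM in PP1, against 14.1 and 15.7 CPM in DE (log2 change 1.59 ± 0.27). The proliferation genes MKI67 and TOP2A did not pass. MKI67 had 352 and 372 CPM in PP1 and 579.5 and 526 CPM in DE (edgeR adjusted p = 0.502). TOP2A had 185 and 238 CPM in PP1 and 290.2 and 218 CPM in DE (edgeR adjusted p = 0.6). Of cell cycle genes, 6 of the 39 tested members rose and 9 fell (3 and 4 in every leave-out run, 8 and 19 without PP2 replicate 3), with a median log2 change of -0.27. Of p53 targets, 10 of the 17 tested members rose and 2 fell (4 and 0 in every leave-out run, 12 and 5 without PP2 replicate 3), with a median log2 change of 0.65. SESN2, a stress sensor that restrains mTORC1, had 164 and 169.9 CPM in PP1, against 20.7 and 25.2 CPM in DE (log2 change 2.86 ± 0.30), and TP53I3 rose at 1.96 ± 0.22 log2. NDRG1, a stress and differentiation gene, had 251 and 279 CPM in PP1, against 11.99 and 10.8 CPM in DE (log2 change 4.54 ± 0.20).

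**Figure D5:**
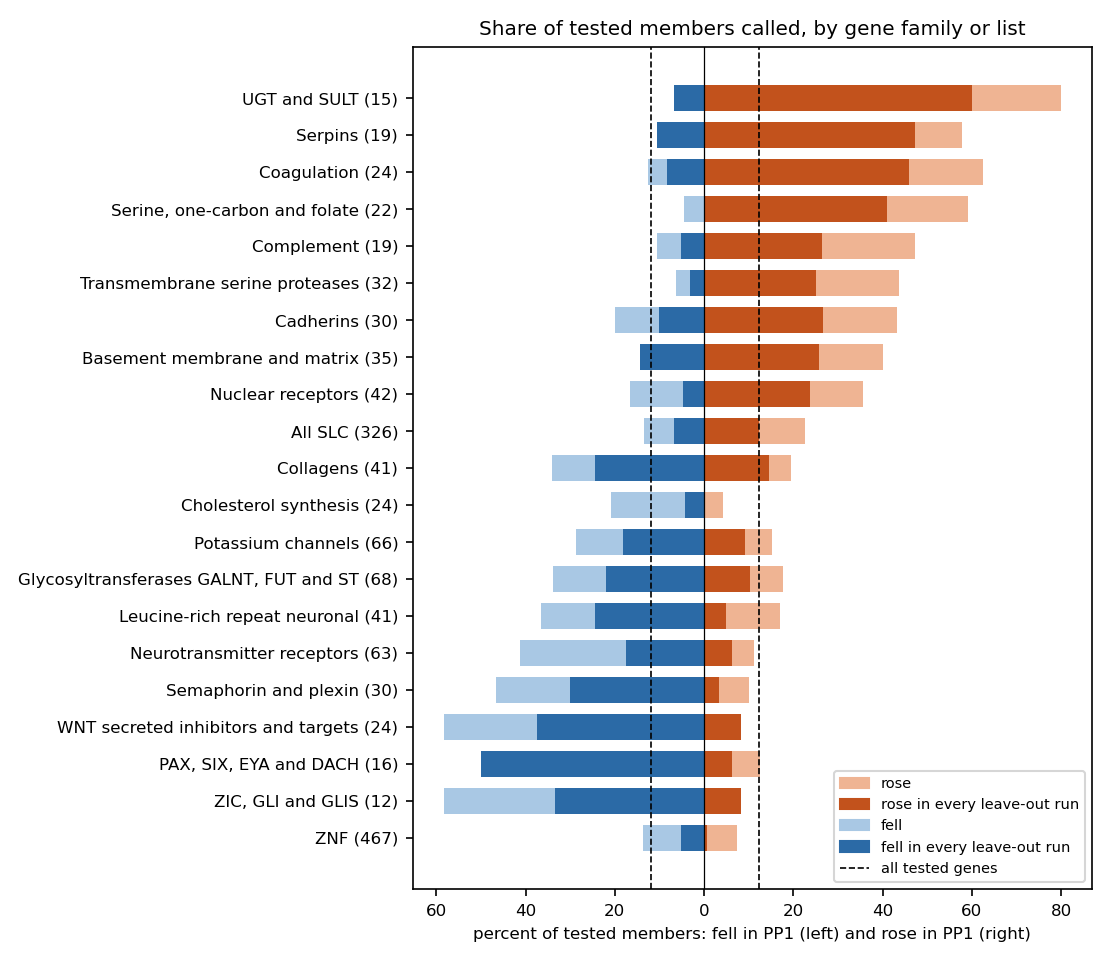
Share of tested members of 21 gene families and lists that rose (to the right) and fell (to the left), in percent, with the number of tested members beside each name, the darker bar being those called in every leave-out run. Dashed lines mark all tested genes (12.3% rose, 12.0% fell). The risen share is 80.0% for UGT and SULT genes, 62.5% for coagulation genes and 7.28% for ZNF genes, and the fallen share is 58.3% for WNT inhibitors and targets and 46.7% for semaphorins and plexins.

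Of the 1530 long noncoding RNA genes tested, 214 rose (14.0%) and 218 fell (14.2%), and 89 (5.82%) and 73 (4.77%) did so in every leave-out run. They were 339 (22.2%) and 345 (22.5%) without PP2 replicate 3. H19, an imprinted RNA of fetal liver and other fetal tissue, had 33.7 and 60.7 CPM in PP1, against 0 and 0 CPM in DE (at least 521-fold higher, edgeR adjusted p = 5.2e-05). HOTAIRM1, which lies in the HOXA cluster, had 20.8 and 23.5 CPM in PP1, against 0 and 0 CPM in DE (at least 238-fold higher). It rose as HOXA2 and HOXA3 did, and because the strand setting of the counts is not given in the sources used here, reads of overlapping genes cannot be told apart. LINC00607 had 50.03 and 58.1 CPM in PP1, against 0.356 and 0.332 CPM in DE (log2 change 7.26 ± 0.33). LHFPL3-AS2 had 67.8 and 70.9 CPM in PP1, against 0.297 and 0 CPM in DE (log2 change 8.74 ± 0.73). Among those that fell, LINC00458, known from pluripotent cells, had 3.98 and 2.44 CPM in PP1, against 143 and 130.2 CPM in DE (log2 change -5.42 ± 0.40), and C1orf61, a brain transcript, had 0.206 and 0 CPM in PP1, against 18.4 and 28.4 CPM in DE (261-fold lower, exact 95% counting interval 88.9 to 1268). EGFLAM-AS4 had 0 and 0.104 CPM in PP1, against 13.5 and 12.96 CPM in DE (224-fold lower, exact 95% counting interval 61.6 to 1854). EGFLAM, the gene on the opposite strand, fell with it and had 3.77 and 4.47 CPM in PP1, against 77.8 and 95.3 CPM in DE (log2 change -4.39 ± 0.40).

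Imprinted genes, which are expressed from 1 parental copy, gave a mixed picture, in which 4 of the 20 tested members rose and 3 fell (2 and 1 in every leave-out run, 9 and 7 without PP2 replicate 3), with a median log2 change of -0.02. PEG10, a placental gene derived from a retrotransposon, had 205 and 228 CPM in PP1, against 3118 and 3022 CPM in DE (log2 change -3.83 ± 0.26). DLK1 was higher, with 119.8 and 143 CPM in PP1 and 24.04 and 22.3 CPM in DE, but lost its call in some leave-out runs (edgeR adjusted p = 0.0201). MEG3 had 12.7 and 5.77 CPM in PP1, against 0.89 and 1.46 CPM in DE (log2 change 2.97 ± 0.50).

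Some large losses fell outside these lists. WSCD2 had 0 and 0 CPM in PP1, against 12.6 and 18.3 CPM in DE (at least 172-fold lower). TRDN, triadin of the calcium release unit of muscle, had 0.206 and 0.364 CPM in PP1, against 97.3 and 92.8 CPM in DE (log2 change -8.31 ± 0.32). SHISAL2B had 0.137 and 0 CPM in PP1, against 79.2 and 86.3 CPM in DE (1397-fold lower, exact 95% counting interval 386 to 11539). LMNTD1 had 0.206 and 0.104 CPM in PP1, against 45.4 and 40.3 CPM in DE (log2 change -8.11 ± 0.50). NOS2, the inducible nitric oxide synthase, had 0 and 0 CPM in PP1, against 18.9 and 11.6 CPM in DE (at least 174-fold lower). CD48 and CD300E, surface proteins of leukocytes, fell. CD48 had 0 and 0.052 CPM in PP1, against 10.8 and 11.03 CPM in DE (369-fold lower, exact 95% counting interval 65.8 to 14618). CD300E had 0 and 0 CPM in PP1, against 15.8 and 16.02 CPM in DE (at least 179.6-fold lower). Blood markers were low in each stage: the 4 tested members of a list of 16 summed to 15.7 and 12.8 CPM in PP1, against 7.18 and 5.98 CPM in DE. Endothelial markers, 11 tested of 12, summed to 49.1 and 55.05 CPM in PP1, against 233 and 278 CPM in DE, with SOX18 at 0 in PP1. Of the 11 tested, 1 rose and 5 fell (1 and 3 in every leave-out run, 2 and 5 without PP2 replicate 3). VWF was the largest member in DE. ESAM went the other way, with 268 counts over the PP1 libraries and 5 over the DE libraries. PECAM1 and CDH5 also had more counts in PP1 (64 and 30) than in DE (17 and 15) but did not pass (edgeR adjusted p = 0.082 and 0.303). CD34, a member of the blood list, did not pass either (edgeR adjusted p = 0.445). Neural crest markers, 6 tested of 10, summed to 16.04 and 15.6 CPM in PP1, against 136 and 141 CPM in DE, and PAX7 and FOXD3 were at 0 in PP1, while TFAP2B was at 0 in each stage. Of the 6 tested, 1 rose and 4 fell (0 and 4 in every leave-out run, 2 and 4 without PP2 replicate 3). ETS1 was the largest member in DE, with 2585 counts over the DE libraries and 399 over the PP1 libraries. SNAI2 and NGFR had more counts in PP1 (52 and 39) than in DE (13 and 7). Markers of pluripotent cells, 21 tested of 22, summed to 2993 and 3144 CPM in PP1, against 5069 and 5015 CPM in DE, and within them POU5F1 had 0.137 and 0.156 CPM in PP1, against 27.8 and 29.7 CPM in DE (log2 change -7.54 ± 0.51). NANOG had 0.137 and 0.104 CPM in PP1, against 11.6 and 14.4 CPM in DE (log2 change -6.70 ± 0.69), while FOXD3, GDF3, ESRG and UTF1 were at 0 in PP1. UTF1 was not tested and had 21 counts over the DE libraries. Of the 21 tested members, 3 rose and 14 fell (3 and 17 without PP2 replicate 3). CD24, given above, rose, and ZFP42 and SOX2 had more counts in PP1 (412 and 68) than in DE (136 and 19). LIN28A, which did not pass, had the highest count of the list in DE. The part of other cell types in these losses was not tested.

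The same comparison was read in the Ribo libraries, which were counted apart from the RNA libraries although the cells may be the same. The 4 PP1 and DE Ribo libraries held 4710335 to 6108416 counts, of which protein-coding genes took 28.1% and 30.8% in PP1, against 34.7% and 35.2% in DE, whereas they took 43.9% to 94.9% in the 3 PP2 Ribo libraries. The part of this difference in the Ribo results was not tested. Of the 1342 genes whose RNA rose in every leave-out run, 1013 were tested in Ribo, where 952 (94.0%) had a positive log2 change and 452 (44.6%) rose, against 4.52% of the 15067 genes tested in Ribo. Of the 1160 whose RNA fell, 840 were tested, 815 (97.0%) had a negative log2 change and 310 (36.9%) fell, against 3.01% of all genes tested. The called counts depended on single libraries. They were 230 and 117 without Ribo PP1 replicate 1 (1.75% and 0.836% of all genes tested rose and fell) and 212 and 105 without Ribo PP1 replicate 2 (1.59% and 0.723%). They were 254 and 168 without Ribo DE replicate 1 (2.08% and 1.23%) and 232 and 148 without Ribo DE replicate 2 (1.85% and 1.15%). With the 4 PP1 and DE Ribo libraries alone they were 615 and 531 (10.7% and 9.21% of all genes tested rose and fell), and 4 of the risen and 1 of the fallen genes passed there in the opposite direction.

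On the Ribo scale FLRT3 changed by 5.06 ± 0.48 log2, EGFR by 2.58 ± 0.42, ROBO2 by 3.48 ± 0.43 and JAG1 by 5.47 ± 0.58, and FGF17 by -9.48 ± 0.69, SFRP1 by -4.25 ± 0.50 and SEMA5A by -3.08 ± 0.36. The direction of each was that of its RNA. Each of these examples passed in Ribo, whereas 44.6% of the risen and 36.9% of the fallen genes tested there did so. The examples therefore do not stand for the other genes. The edgeR adjusted p values in Ribo were 0.00043, 0.00472, 0.00098 and 0.0007 for the 4 higher genes and 0.00013, 0.00098 and 0.00077 for the 3 lower ones.

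Levels at the next stage differed between gained genes. These 5 examples were chosen after their values were seen and are given without a test. IGFBP3 was at 11.99 and 13.4 CPM in DE, 654 and 731 CPM in PP1, and 53.4, 54.7 and 75.8 CPM in PP2. IL6R was at 1.42 and 0.797 CPM in DE, 115 and 102 CPM in PP1, and 4.75, 6.28 and 8.53 CPM in PP2. TFPI was at 1.36 and 0.93 CPM in DE, 402 and 361 CPM in PP1, and 41.02, 38.6 and 85.5 CPM in PP2. CFTR was at 3.15 and 1.93 CPM in DE, 90.1 and 102 CPM in PP1, and 28.7, 29.2 and 57.6 CPM in PP2. These 4 were highest in the PP1 libraries. GLIS3 was at 7.95 and 6.78 CPM in DE, 87.1 and 96.9 CPM in PP1, and 132, 134.4 and 108 CPM in PP2, with its highest levels in PP2.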

How the data were processed

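The values deposited by the authors are raw read counts, in 1 table with a row for each gene symbol and a column for each of 14 libraries. Per the submitters' processing notes, cutadapt 1.18, Bowtie 1.2, STAR 2.7.1a and featureCounts 1.6.4 were used with hg38. Neither the strand setting nor the annotation is given in the sources used here. Stages were taken from the sample titles. The 7 RNA libraries (2 PP1, 2 DE, 3 PP2) were fitted together with stage as the factor in edgeR 4.0.16 (R 4.3.3; limma 3.58.1), after filterByExpr and TMM scaling, with the quasi-likelihood test and Benjamini-Hochberg adjustment, and the 7 Ribo libraries were fitted in the same way. DESeq2 1.42.0 served as an alternative. In simulated data with 200 changed genes among 24603, the fit recovered 4 of 66 genes changed by 1 log2 unit, 50 of 67 changed by 2 and 64 of 67 changed by 4, with 6 false among 124 calls. Symbols were matched to RefSeq, 36273 directly and 1002 by an older symbol, and 21775 were unmatched.

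Named genes were the largest changes, genome-wide (20 each way) and in each list or family (up to 6 each way), with at least 10 CPM in the higher stage, no overlap between libraries and a call kept in every leave-out run, plus list members whose role bears on a list. Some genes that met this rule are not reported here. The comparison, members and lists were chosen with earlier results of these data known. Same-stage libraries differed by more than sampling noise (chi-square per degree of freedom 17.2 in PP1 and 5.23 in DE, and 3.49 to 154 in PP2, highest for pairs with PP2 replicate 3).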

Additional observations from a re-analysis of the deposited data

How the results depend on the processing

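The direction of all 370 called genes named above was the same in each of the 17 alternatives that tested them. Of these, 14 lost the call when a library was left out or other genes were tested, and 24 lost it with a glmTreat test against 2-fold. Most of the 370 genes were named by a rule that asked for a call kept in every leave-out run. For those genes the direction and call in the leave-out fits were fixed in advance. Among genes that did not pass, ETV4 stood at -0.34 to 0.062 log2 with 1 library left out (0.062 without PP1 replicate 1), against -0.12 in the fit of 7 libraries. PTF1A stood at -2.45 to 4.72 log2 (-2.45 without PP1 replicate 2), against 2.24.

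The number of calls differed between settings. The 5979 genes called (3034 rose, 2945 fell) became 2977 (1559 rose, 1418 fell) with glmTreat, 11411 (5799 rose, 5612 fell) with the 4 libraries alone and 10952 (5488 rose, 5464 fell) with limma voom quality weights. Leaving out 1 library gave 3036 to 12015 calls, 1559 to 6075 of them risen and 1477 to 5940 fallen. The lowest count was without DE replicate 2 and the highest without PP2 replicate 3. Without DE replicate 1 the fit called 3099, without PP1 replicate 1 it called 3327 and without PP1 replicate 2 it called 3258. A stage left with 1 library was assumed to vary like the others. Same-numbered libraries did not deviate together (correlations from -0.07 to 0.08). In a stage with 2 libraries the deviations mirror each other, so few independent values stand behind these correlations. They cannot exclude pairing, and whether the numbers pair the samples is not known. A fit with the replicate block called 11711 genes (5910 rose, 5801 fell). Only PP2 has a replicate 3, so that block fits this library exactly and takes it out of the spread. DESeq2 size factors, TMM without mitochondrial and structural RNA, protein-coding genes alone, both other filters and the DESeq2 Wald test left the counts within 1.5 times. No scaling shifted the median of all genes by more than 0.05 log2. The 762 Ribo calls became 1146 with the 4 Ribo libraries alone and 317 to 1036 with 1 library left out. The cause of these moves was not tested. With 2 libraries a stage, changes near 1 log2 unit were rarely recovered in the simulated data (4 of 66). The simulation changed 200 genes, far fewer than the 5979 called in the data, and the adjusted p depends on that share. The recovery in the data may therefore differ from the simulated one.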
